A study of Mus musculus with 9 samples.

Results

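The comparison described here is the interaction between Foxn1 transgene dose and thymic compartment, that is, the question of which genes respond to dose differently in cortical and in medullary thymic epithelial cells (cTEC and mTEC). It rests on 10 of the 20 RNA libraries of the series, all from mice that carry a Foxn1 bacterial artificial chromosome (BAC) transgene on the nude background. The 4 groups are cTEC of heterozygous transgenic mice (3 libraries), cTEC of homozygous transgenic mice (3), mTEC of heterozygous transgenic mice (2) and mTEC of homozygous transgenic mice (2). Heterozygous mice are called the lower dose and homozygous mice the higher dose. The labels give the number of transgene copies only by zygosity, and no mouse age, strain or sex. Both doses share the nude Foxn1 mutation, so no group here is wild type, and all Foxn1 function comes from the transgene. The counts per gene do not separate transcripts of the transgene from those of the nude allele. Cells were sorted as CD45-EpCAM+MHCII+ and then as Ly51+UEA1- (cTEC) or Ly51-UEA1+ (mTEC), frozen, and sequenced as polyA RNA. The numbered libraries of a group belong to 1 sample record each, and nothing in the labels says that they came from separate mice. The p-values therefore measure the spread between these libraries, which may be technical.

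Foxn1 is the forkhead transcription factor that thymic epithelium needs to form and to maintain a thymus, and nude mice lack a functional copy. cTEC attract blood-borne progenitors, commit them to the T lineage through the Notch ligand Dll4 and select them on peptides made by a thymus-specific proteasome. mTEC express tissue-restricted genes, in part under Aire, and remove self-reactive thymocytes. They also include small populations that resemble keratinocytes, tuft cells, ciliated cells and other peripheral epithelia, called mimetic cells.

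In each compartment the dose effect is the log2 fold change of lower over higher dose, so that a negative value means less RNA at the lower dose. The interaction is the mTEC effect minus the cTEC effect. A positive interaction therefore marks a gene that is relatively higher at the lower dose in mTEC than in cTEC. Values after ± are standard errors (SE) of the fit, and levels are CPM (depth-scaled counts) with each library total scaled by its TMM factor. CPM are not scaled by gene length, so levels are compared between groups and not between genes. All values are relative to the other RNA of a library, and in sorted bulk samples fewer cells of a type cannot be told apart from less RNA per cell. A gene is called, and is said to rise or fall, when its Benjamini-Hochberg adjusted p is under 0.05 in edgeR's two-sided quasi-likelihood test.

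Library totals ran from 21027043 to 22061738 counts. cTEC libraries held counts for 19818 to 20251 genes and mTEC libraries for 23759 to 25434. The labelled compartments carried their own markers. The mTEC factor Aire stood at 1.67, 1.28 and 1.32 CPM in lower-dose cTEC, 2.71, 3.25 and 1.46 in higher-dose cTEC, 942 and 957 in lower-dose mTEC and 954 and 1100.1 in higher-dose mTEC, and the cTEC proteasome subunit Psmb11 at 109, 99.4 and 107 CPM in lower-dose cTEC, 1152, 1059.6 and 1069 in higher-dose cTEC, 3.42 and 4.74 in lower-dose mTEC and 27.3 and 12.2 in higher-dose mTEC. Markers of other cell types were summed per library, and the part of such cells in the results was not tested. Over all genes 20.9% rose and 21.9% fell in cTEC, and 28.9% rose and 30.8% fell in mTEC. Thymocyte and T cell markers summed to 36.5 to 51.6 CPM in lower-dose cTEC, 147 to 213 in higher-dose cTEC, 116.9 to 117.2 in lower-dose mTEC and 196 to 232 in higher-dose mTEC, and 21 of 21 fell in cTEC and 18 in mTEC. Their interaction was called higher for 16 and lower for 0, against 25.2% and 17.2% of all genes. Their medians were -3.01 in cTEC, -1.09 in mTEC and 1.75 for the interaction. Macrophage and dendritic cell markers summed to 9.98 to 11.9 CPM in lower-dose cTEC, 8.32 to 11.8 in higher-dose cTEC, 136 to 141 in lower-dose mTEC and 584 to 677 in higher-dose mTEC, with Lyz2 holding most of the mTEC sum, and 13 of 16 fell in mTEC. For 7 of the 16 a group held 3 counts or fewer, so this count is a description. Of the defining macrophage genes C1qb and Mrc1, the highest group mean in cTEC was 0.849 CPM. Fibroblast markers summed to 375 to 378 CPM in lower-dose cTEC, 165 to 171 in higher-dose cTEC, 208 to 239 in lower-dose mTEC and 255 to 283 in higher-dose mTEC, most of it Dcn and Fbln1 in cTEC. Of 15 fibroblast markers, 5 rose and 2 fell in cTEC, 3 rose and 6 fell in mTEC, and the interaction was called higher for 1 and lower for 4. Neural crest and Schwann cell markers summed to 216 to 251 CPM in lower-dose cTEC, 144 to 150.2 in higher-dose cTEC, 208 to 210.2 in lower-dose mTEC and 267 to 279 in higher-dose mTEC, with Ngfr the highest in cTEC, and neither compartment's doses overlapped. Of 11 tested, 5 rose and 2 fell in cTEC, 2 rose and 7 fell in mTEC, and the interaction was called higher for 1 and lower for 6, with medians of 1.15 in cTEC, -0.54 in mTEC and -1.52 for the interaction. Among them Sox10, Erbb3, Ngfr, Mbp and Egr2 rose in cTEC while Gfap and Pmp22 fell there, and Foxd3 was at 0 CPM on average in lower-dose and 0.01704 in higher-dose cTEC. B cell markers summed to 6.65 to 8.68 CPM in lower-dose cTEC, 8.89 to 9.795 in higher-dose cTEC, 229 to 249 in lower-dose mTEC and 285 to 288 in higher-dose mTEC, most of it Blnk and Cr2. Within groups, lower-dose cTEC library 2 stood apart for some genes, such as Igfbp5 with 1215, 444 and 1314 CPM, and higher-dose mTEC library 1 held more of the cTEC transcripts than library 2, such as Prss16 with 162 and 91.5 CPM.

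The compartments parted in whole gene groups. At the lower dose all 31 constitutive proteasome genes fell in cTEC, where 21.9% of all genes fell, while 6 rose and 1 fell in mTEC, a split that turned to 1 and 10 with RLE size factors. Of 22 keratinocyte differentiation genes, 11 rose in cTEC, where 20.9% of all genes rose, and 21 fell in mTEC, where 30.8% did. Of 30 cell cycle genes, 28 rose in mTEC, where 28.9% of all genes rose, and 10 in cTEC. cTEC identity genes such as Ccl25 and Prss16 fell in both and further in cTEC, and Foxn1 mRNA itself fell in cTEC and rose in mTEC. Of 19222 genes tested, 8162 (42.5%) were called for the interaction, 4848 (25.2%) higher and 3314 (17.2%) lower. The dose effect itself was called for 8225 genes (42.8%) in cTEC, with 4024 (20.9%) rising and 4201 (21.9%) falling at the lower dose. In mTEC it was called for 11472 genes (59.7%), of which 5550 (28.9%) rose and 5922 (30.8%) fell. Changes of at least 2-fold were split differently: 1570 genes rose and 1006 fell in cTEC, while 687 rose and 3561 fell in mTEC. The interaction itself exceeded 2-fold for 901 genes upwards and 2245 downwards. The balance of directions depends on the scaling. Under RLE size factors the interaction was called higher for 3403 genes and lower for 3925, and with no normalization factors for 3106 and 4119, where the median interaction of all genes moved by -0.13 and -0.16 from its value under TMM. Under TMM the medians over all genes were 0 in cTEC, 0.01 in mTEC and 0.05 for the interaction. These medians and the shares of all genes called under TMM are the background for every list below.

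Genes called for the interaction were sorted by their response in each compartment. Opposite responses were called for 1798 genes (9.35% of those tested). Of these, 972 (5.06%) fell in cTEC and rose in mTEC, mostly by small amounts: the median changes were -0.34 and 0.39, and 14 genes moved at least 2-fold in both compartments. The reverse pattern, up in cTEC and down in mTEC, held for 826 genes (4.3%), with median changes of 1.32 and -0.87 and 280 genes past 2-fold in both. A dose effect called in cTEC only was found for 2100 genes (10.9%), of which 1192 (6.2%) fell and 908 (4.72%) rose. A dose effect called in mTEC only was found for 3017 genes (15.7%), of which 1114 (5.8%) fell and 1903 (9.9%) rose. A further 340 genes (1.77%) fell in both compartments but more in cTEC, 240 (1.25%) rose in both but more in cTEC, 173 (0.9%) fell more in mTEC and 363 (1.89%) rose more in mTEC. Together 580 genes (3.02%) moved the same way but more in cTEC, and 536 (2.79%) more in mTEC. The remaining 131 (0.682%) had a called interaction and no called dose effect. A missed threshold in the other compartment does not show the absence of a response. Among the genes called in cTEC only, the 95% interval of the mTEC effect lay within 1 log2 unit of 0, at a mean of at least 2 CPM in both compartments, for 1076 of those that fell and 626 of those that rose. Among the genes called in mTEC only the same held of the cTEC effect for 472 that fell and 1829 that rose.

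**Figure D1:**
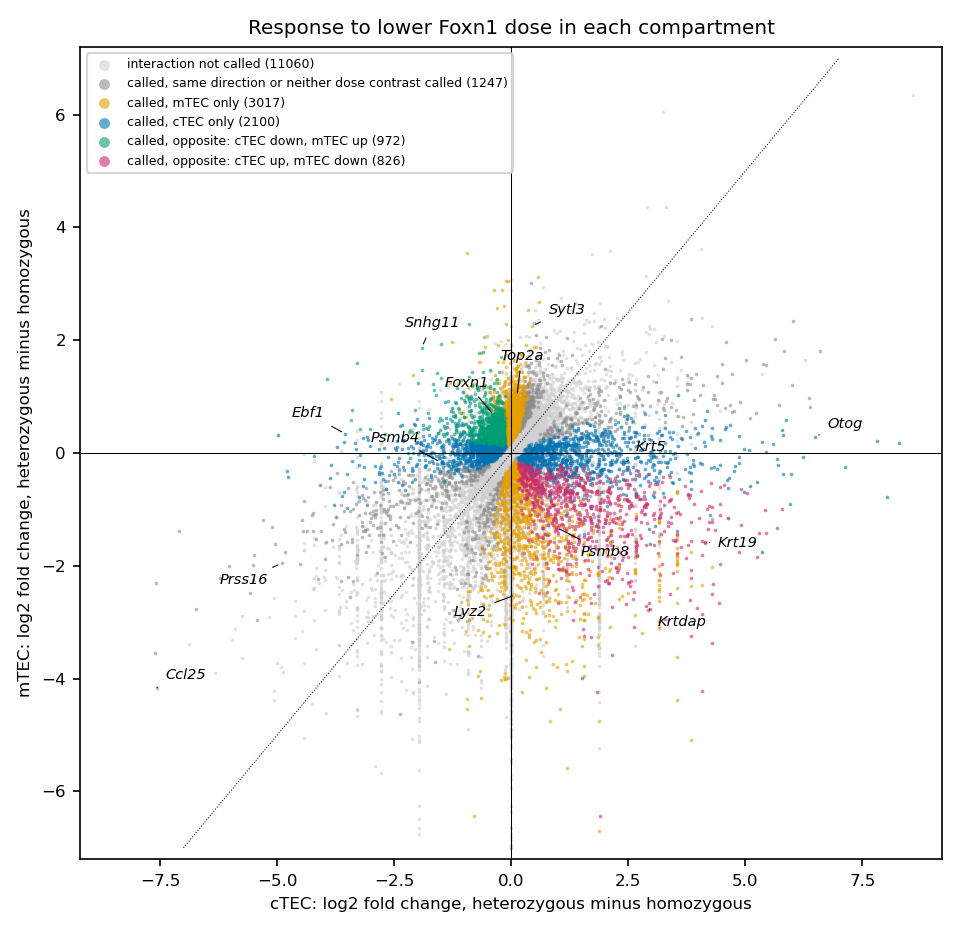
Log2 fold change of lower over higher Foxn1 dose in cTEC (x axis) and mTEC (y axis) for the 19222 genes tested, 1 point per gene, coloured by response class and clipped at the axis limits, with a dotted line of equal change. The 826 genes that rose in cTEC and fell in mTEC spread far from the origin, while the 972 genes with the reverse pattern stay close to it. Vertical stripes are genes with few counts in cTEC.

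Foxn1 mRNA itself moved in opposite directions. Its level was 1162, 1196 and 1136 CPM in lower-dose cTEC, 1622, 1432 and 1434 in higher-dose cTEC, 460.5 and 471 in lower-dose mTEC and 284 and 304 in higher-dose mTEC. cTEC held less Foxn1 RNA at the lower dose, while mTEC held more. Foxn1 fell in cTEC with no overlap (log2 fold change -0.36 ± 0.06, adjusted p = 4.5e-04) and rose in mTEC with no overlap (0.66 ± 0.08, adjusted p = 1.7e-05), and its interaction was 1.02 ± 0.10 (adjusted p = 5.6e-06). At either dose every cTEC library held more Foxn1 RNA than any mTEC library. Pax1, a paired-box factor of the pharyngeal pouch from which the thymus forms, behaved alike, with 808, 778 and 776 CPM in lower-dose cTEC, 1243, 1288 and 1183 in higher-dose cTEC, 187 and 187 in lower-dose mTEC and 132 and 129 in higher-dose mTEC. Pax1 fell in cTEC with no overlap (log2 fold change -0.65 ± 0.05, adjusted p = 5.1e-07) and rose in mTEC with no overlap (0.52 ± 0.07, adjusted p = 3.3e-05), and its interaction was 1.17 ± 0.09 (adjusted p = 4.7e-07). Slc46a2, a solute carrier expressed by thymic stroma, stood at 756, 857 and 725 CPM in lower-dose cTEC, 1185, 1234 and 1187 in higher-dose cTEC, 221 and 255 in lower-dose mTEC and 157 and 157 in higher-dose mTEC, with the same opposite ordering of the doses. Slc46a2 fell in cTEC with no overlap (log2 fold change -0.63 ± 0.07, adjusted p = 1.2e-05) and rose in mTEC with no overlap (0.60 ± 0.09, adjusted p = 1.1e-04), and its interaction was 1.22 ± 0.12 (adjusted p = 3.7e-06). Foxn1 and Pax1 kept this class with each library left out, with RLE size factors and with no normalization factors. In a fit of all 20 libraries the Foxn1 interaction was called while its cTEC fall was not (-0.34, adjusted p = 0.13).

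**Figure D2:**
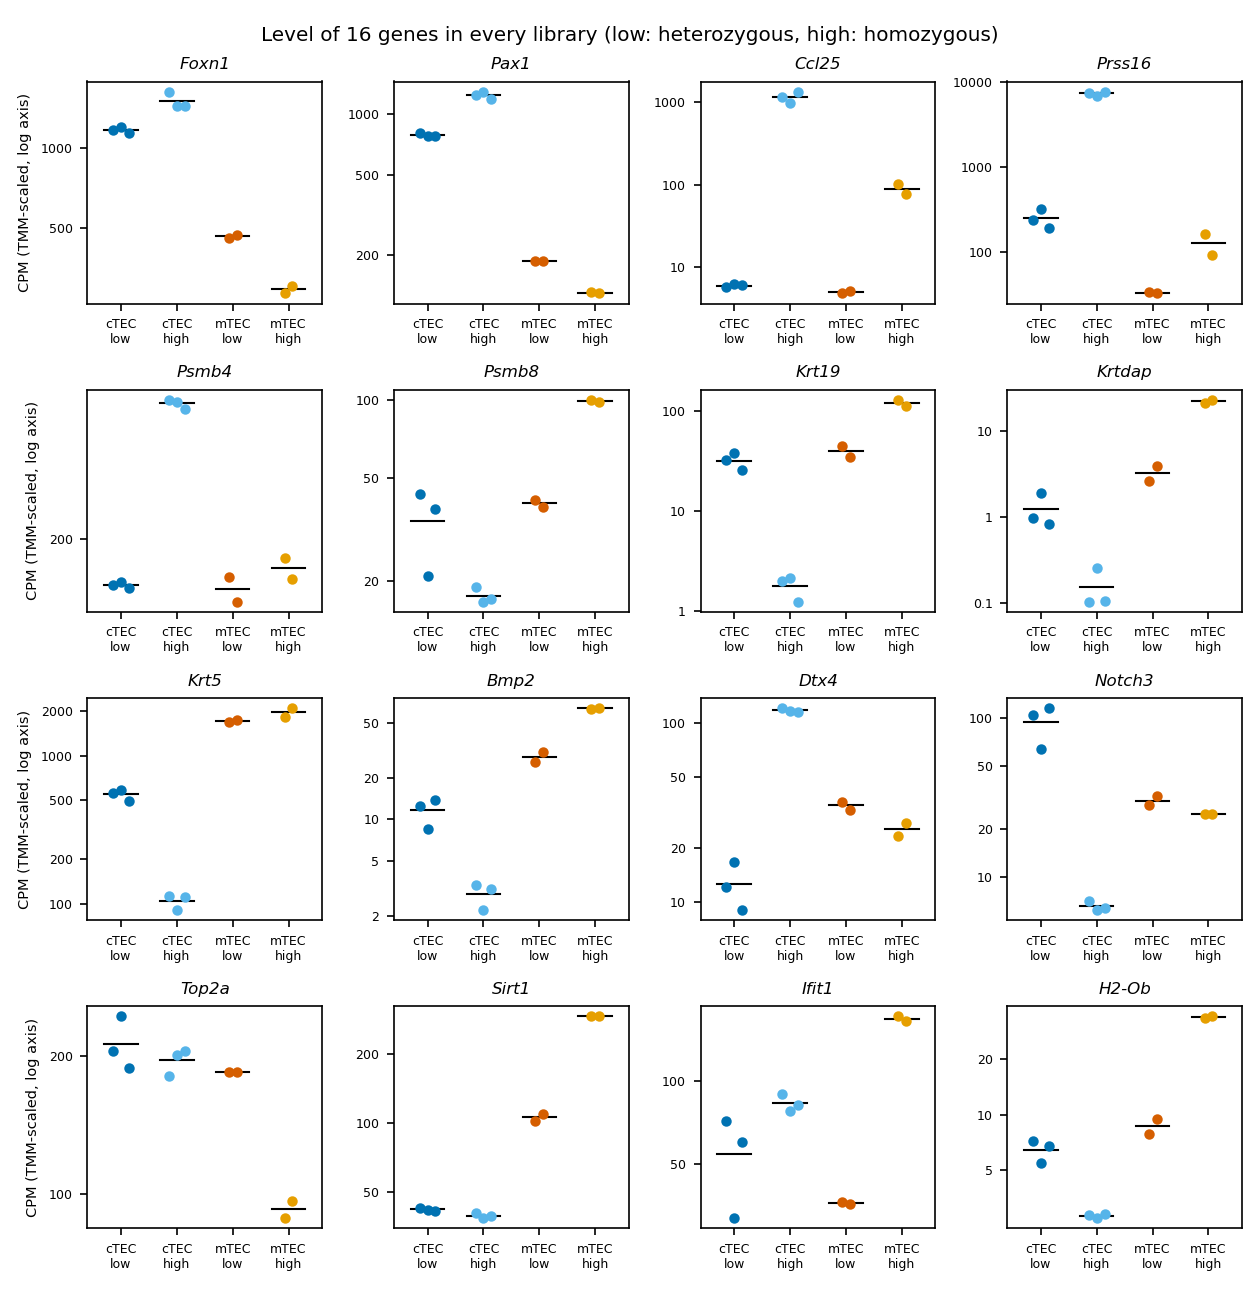
Level of 16 genes in each library, as TMM-scaled CPM on a log axis, in lower- and higher-dose cTEC and mTEC. Each point is 1 library and each line a group mean. Foxn1 and Pax1 step down in cTEC and up in mTEC at the lower dose, Krt19 and Krtdap do the reverse, and Psmb4 steps down in cTEC alone.

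The cTEC programme was read through a list of 20 cTEC identity genes. The 5-base sequence GACGC is known as a Foxn1 binding core. The 250 bases before the start are shown for 3 cTEC genes that fell more in cTEC, chosen for holding it. Krt5, a basal keratin that rose in cTEC, is shown and lacks it, as most promoters do. Sequences are from RefSeq (GRCm38.p6), written 5′ to 3′ on the gene's strand in lower case, with GACGC or its reverse complement GCGTC in capitals. Psmb11 lies on chr14:54625060-54625309 (plus strand), with the motif 239 and 62 bases before the start. Ccl25 lies on chr8:4324960-4325209 (plus strand), with 1 motif 56 bases before it. Cxcl12 lies on chr6:117168285-117168534 (plus strand), with 1 motif 62 bases before it. Krt5 lies on chr15:101712906-101713155 (minus strand) and holds none.
Psmb11: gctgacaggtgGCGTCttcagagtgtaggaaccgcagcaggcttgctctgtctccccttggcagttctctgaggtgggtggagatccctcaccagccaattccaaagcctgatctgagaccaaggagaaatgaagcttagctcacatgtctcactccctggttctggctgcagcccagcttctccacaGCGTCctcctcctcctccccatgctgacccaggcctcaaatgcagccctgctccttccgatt
Ccl25: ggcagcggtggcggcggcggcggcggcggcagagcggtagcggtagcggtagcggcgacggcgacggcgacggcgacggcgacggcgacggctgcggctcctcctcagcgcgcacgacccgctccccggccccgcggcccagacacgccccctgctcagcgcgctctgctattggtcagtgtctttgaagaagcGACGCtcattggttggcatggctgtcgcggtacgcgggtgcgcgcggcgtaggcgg
Cxcl12: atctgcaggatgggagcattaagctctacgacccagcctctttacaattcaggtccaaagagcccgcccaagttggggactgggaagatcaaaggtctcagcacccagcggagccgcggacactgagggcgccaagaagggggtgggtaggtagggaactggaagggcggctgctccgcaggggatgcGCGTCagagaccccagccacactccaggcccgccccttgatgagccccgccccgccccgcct
Krt5: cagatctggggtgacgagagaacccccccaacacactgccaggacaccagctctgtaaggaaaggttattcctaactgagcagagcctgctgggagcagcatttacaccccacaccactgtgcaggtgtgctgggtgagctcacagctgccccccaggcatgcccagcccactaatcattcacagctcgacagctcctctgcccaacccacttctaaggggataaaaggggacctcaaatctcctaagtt

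The motif, on either strand, occurs in the same window of 22.6% of the 27025 promoters in the table, and 3 of the 7 fixed genes with a promoter there that fell more in cTEC hold it. A match is a description of these letters and not a site. A promoter could be matched by symbol for 69.3% of the genes tested, under the 80% set as a minimum, so the classes were not compared for it.

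Most cTEC identity genes fell in both compartments, and fell further in cTEC. Of the 20 members, 2 rose and 17 fell in cTEC, 5 rose and 14 fell in mTEC, and the interaction was called higher for 16 and lower for 1. The median log2 fold changes were -1.53 in cTEC, -0.51 in mTEC and 1.20 for the interaction. By class, 12 fell more in cTEC and 3 moved in opposite directions, against 1.77% and 5.06% of all genes. Ccl25, the chemokine that draws CCR9-bearing progenitors into the thymus, stood at 5.75, 6.28 and 6.06 CPM in lower-dose cTEC, 1137, 968 and 1327 in higher-dose cTEC, 4.84 and 5.14 in lower-dose mTEC and 102 and 76.4 in higher-dose mTEC. Its lower-dose cTEC libraries held hardly more than the lower-dose mTEC libraries, while at the higher dose cTEC held far more. Ccl25 fell in cTEC with no overlap (log2 fold change -7.57 ± 0.16, adjusted p = 2.5e-12) and fell in mTEC with no overlap (-4.16 ± 0.18, adjusted p = 5.5e-09), and its interaction was 3.41 ± 0.25 (adjusted p = 4.2e-07). Prss16, a serine protease that cTEC use to make class II peptides, stood at 235, 316 and 190.0 CPM in lower-dose cTEC, 7407, 6979 and 7769.9 in higher-dose cTEC, 33.2 and 31.96 in lower-dose mTEC and 162 and 91.5 in higher-dose mTEC. Its 2 higher-dose mTEC libraries differed from each other but stayed above both lower-dose ones. Prss16 fell in cTEC with no overlap (log2 fold change -4.90 ± 0.22, adjusted p = 1.7e-09) and fell in mTEC with no overlap (-1.96 ± 0.25, adjusted p = 2.6e-05), and its interaction was 2.95 ± 0.31 (adjusted p = 9.0e-06). Dll4, the ligand through which cTEC trigger Notch1 on progenitors, stood at 116, 119.7 and 106 CPM in lower-dose cTEC, 588, 559 and 552 in higher-dose cTEC, 19.4 and 18.7 in lower-dose mTEC and 30.4 and 23.1 in higher-dose mTEC. Dll4 fell in cTEC with no overlap (log2 fold change -2.31 ± 0.08, adjusted p = 2.5e-10) and fell in mTEC with no overlap (-0.49 ± 0.11, adjusted p = 0.0025), and its interaction was 1.82 ± 0.14 (adjusted p = 6.3e-07). Ctsl, the lysosomal protease cathepsin L of cTEC, stood at 1383, 1452 and 1145 CPM in lower-dose cTEC, 6203, 6101 and 6777 in higher-dose cTEC, 511 and 551 in lower-dose mTEC and 786 and 757 in higher-dose mTEC. Ctsl fell in cTEC with no overlap (log2 fold change -2.26 ± 0.09, adjusted p = 6.8e-10) and fell in mTEC with no overlap (-0.54 ± 0.11, adjusted p = 8.1e-04), and its interaction was 1.72 ± 0.14 (adjusted p = 9.3e-07).

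Psmb11 encodes the catalytic subunit of the thymoproteasome, and its levels were given above. Psmb11 fell in cTEC with no overlap (log2 fold change -3.38 ± 0.18, adjusted p = 1.2e-08) and fell in mTEC with no overlap (-2.27 ± 0.30, adjusted p = 3.9e-05), and its interaction was 1.11 ± 0.37 (adjusted p = 0.026). In mTEC it reached 1.81% of the cTEC level at the higher dose, and its 2 higher-dose mTEC libraries differed. The interaction was not called without lower-dose mTEC library 2 (0.85, adjusted p = 0.19), nor with RLE size factors, with no factors, with every gene kept, with robust spread or in DESeq2. Cxcl12, a chemokine for CXCR4-bearing progenitors, stood at 767, 872 and 719.6 CPM in lower-dose cTEC, 2731, 2633 and 2759 in higher-dose cTEC, 41.9 and 46.7 in lower-dose mTEC and 73.97 and 47.96 in higher-dose mTEC. In mTEC the doses did not overlap, but the lower value of the higher dose lay close to the lower dose. Cxcl12 fell in cTEC with no overlap (log2 fold change -1.78 ± 0.12, adjusted p = 8.8e-08) and fell in mTEC with no overlap (-0.46 ± 0.16, adjusted p = 0.023), and its interaction was 1.32 ± 0.20 (adjusted p = 1.5e-04). Its mTEC call was lost without lower-dose mTEC library 1 (-0.38, adjusted p = 0.13) or higher-dose mTEC library 1 (-0.11, adjusted p = 0.48). Krt8, a simple keratin that forms a pair with Krt18 in cTEC, stood at 1469, 1502 and 1348 CPM in lower-dose cTEC, 4110.4, 4107 and 4219.5 in higher-dose cTEC, 1214 and 1163 in lower-dose mTEC and 1725 and 1326 in higher-dose mTEC. Krt8 fell in cTEC with no overlap (log2 fold change -1.53 ± 0.09, adjusted p = 1.9e-08) and fell in mTEC with no overlap (-0.36 ± 0.11, adjusted p = 0.011), and its interaction was 1.17 ± 0.14 (adjusted p = 2.3e-05). Without higher-dose mTEC library 1 its mTEC effect was -0.15, adjusted p = 0.15, and without lower-dose mTEC library 2 it was -0.32, adjusted p = 0.071. Cd83, which stabilises MHC class II at the cell surface, had log2 fold changes of -4.13 in cTEC and -2.23 in mTEC. Ly75, the endocytic receptor DEC-205, had log2 fold changes of -1.40 in cTEC and -0.89 in mTEC, and its interaction of 0.51 ± 0.15 (adjusted p = 0.014) was not called without mTEC library 2 of the lower dose (0.37, adjusted p = 0.095) or of the higher dose (0.45, adjusted p = 0.080). Enpep, which encodes the Ly51 antigen used in the sort, fell in both compartments, by log2 changes of -0.68 in cTEC and -0.56 in mTEC, with an interaction of 0.13 ± 0.10 (adjusted p = 0.35). Without higher-dose mTEC library 1 the Enpep interaction was 0.26. At the higher dose the mTEC libraries held Psmb11, Ccl25, Prss16, Dll4, Ctsl and Cxcl12 far below the cTEC level. At the lower dose Ccl25 and Krt8 in mTEC came close to the cTEC level. Whether cTEC transcripts in the mTEC libraries come from mTEC or from cTEC in the mTEC gate was not tested.

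The constitutive proteasome was a response of cTEC. The proteasome degrades ubiquitinated proteins and supplies peptides for MHC class I. All 31 subunit genes on the list fell in cTEC at the lower dose, against 21.9% of all genes, while in mTEC 6 rose and 1 fell. The interaction was called higher for 30 and lower for none, against 25.2% and 17.2% of all genes. Psmd8 alone was not called. The median log2 fold changes were -0.80 in cTEC, 0.01 in mTEC and 0.85 for the interaction. By class, 23 were called in cTEC only, against 6.2% of all genes, and 6 in opposite directions. Psmc2, an ATPase of the regulatory particle, stood at 109, 102 and 104 CPM in lower-dose cTEC, 244, 240.4 and 238 in higher-dose cTEC, 119 and 115 in lower-dose mTEC and 120.4 and 117 in higher-dose mTEC. The cTEC doses lay far apart, and the mTEC doses lay within a few CPM of each other. Psmc2 fell in cTEC with no overlap (log2 fold change -1.20 ± 0.05, adjusted p = 8.0e-10) and was not called in mTEC, where the doses overlapped (-0.02 ± 0.06, adjusted p = 0.76), and its interaction was 1.18 ± 0.08 (adjusted p = 1.8e-07). Psmb4, a subunit of the 20S core, stood at 154, 157 and 151 CPM in lower-dose cTEC, 439, 434 and 418 in higher-dose cTEC, 161 and 139.8 in lower-dose mTEC and 179.7 and 159 in higher-dose mTEC. Here the mTEC doses overlapped. Psmb4 fell in cTEC with no overlap (log2 fold change -1.48 ± 0.07, adjusted p = 1.7e-09) and was not called in mTEC, where the doses overlapped (-0.17 ± 0.08, adjusted p = 0.078), and its interaction was 1.31 ± 0.10 (adjusted p = 7.4e-07). Psmd3, a non-ATPase subunit of the regulatory particle, stood at 166, 159 and 156 CPM in lower-dose cTEC, 278, 273 and 275 in higher-dose cTEC, 193 and 175 in lower-dose mTEC and 141 and 138 in higher-dose mTEC. Psmd3 fell in cTEC with no overlap (log2 fold change -0.78 ± 0.05, adjusted p = 7.1e-08) and rose in mTEC with no overlap (0.40 ± 0.06, adjusted p = 1.9e-04), and its interaction was 1.18 ± 0.08 (adjusted p = 3.3e-07). The mTEC direction of the list depends on the scaling: its median mTEC effect was -0.12 with RLE size factors, where 1 rose and 10 fell, and -0.02 with no factors. The cTEC fall and the interaction did not: the interaction was higher for 29 with RLE size factors and 29 with no factors.

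Of the interferon-inducible catalytic subunits of the immunoproteasome, Psmb8 alone rose in cTEC. Psmb10 fell there as the constitutive ones did, and Psmb9 had a negative log2 fold change there. Psmb8 stood at 43.3, 20.9 and 37.96 CPM in lower-dose cTEC, 19.1, 16.7 and 17.2 in higher-dose cTEC, 41.2 and 38.7 in lower-dose mTEC and 100.4 and 98.4 in higher-dose mTEC. In cTEC the lower dose was higher in all libraries, with library 2 closest to the higher dose, and in mTEC it was lower. Psmb8 rose in cTEC with no overlap (log2 fold change 0.95 ± 0.19, adjusted p = 0.0013) and fell in mTEC with no overlap (-1.31 ± 0.21, adjusted p = 2.0e-04), and its interaction was -2.26 ± 0.29 (adjusted p = 4.4e-05). Psmb10 stood at 135, 116 and 112 CPM in lower-dose cTEC, 401, 393 and 367 in higher-dose cTEC, 94.9 and 85.95 in lower-dose mTEC and 169.6 and 148 in higher-dose mTEC, lower at the lower dose in both compartments. Psmb10 fell in cTEC with no overlap (log2 fold change -1.68 ± 0.08, adjusted p = 3.5e-09) and fell in mTEC with no overlap (-0.81 ± 0.10, adjusted p = 1.8e-05), and its interaction was 0.87 ± 0.12 (adjusted p = 1.1e-04). Psmb9 had log2 fold changes of -1.06 in cTEC and -0.86 in mTEC with no called interaction (0.21 ± 0.15, adjusted p = 0.32). Psme1, an activator subunit that caps the 20S core, had log2 fold changes of 0.93 in cTEC and -0.45 in mTEC and an interaction of -1.38 ± 0.20 (adjusted p = 1.4e-04). Its mTEC effect was not called in 3 of the 10 fits that leave out 1 library, those without lower-dose mTEC library 2 (-0.37, adjusted p = 0.12), higher-dose mTEC library 1 (-0.36, adjusted p = 0.17) and higher-dose mTEC library 2 (-0.52, adjusted p = 0.052).

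Nearly all genes of the differentiating epidermis fell in mTEC, and a part of them rose in cTEC. Of 22 keratinocyte differentiation genes, 11 rose and 2 fell in cTEC, 0 rose and 21 fell in mTEC, and the interaction was called higher for 0 and lower for 16. By class 10 rose in cTEC and fell in mTEC, against 4.3% of all genes. The median log2 fold changes were 0.68 in cTEC, -2.18 in mTEC and -2.37 for the interaction. For 5 members a group held 3 counts or fewer, and with those at their bound the median interaction was -2.77. Members this low pass the filter on low counts through the group where they are high, so their fall in mTEC is a description. Krtdap, a secreted protein of differentiating keratinocytes, stood at 0.975, 1.88 and 0.8203 CPM in lower-dose cTEC, 0.102, 0.2499 and 0.104 in higher-dose cTEC, 2.62 and 3.86 in lower-dose mTEC and 21.3 and 22.9 in higher-dose mTEC. Its cTEC levels were low at both doses, yet no library overlapped. Krtdap rose in cTEC with no overlap (log2 fold change 2.95 ± 0.50, adjusted p = 3.3e-04) and fell in mTEC with no overlap (-2.77 ± 0.24, adjusted p = 1.3e-06), and its interaction was -5.72 ± 0.53 (adjusted p = 3.2e-06). Spink5, an inhibitor of skin serine proteases, stood at 14.6, 13.4 and 8.39 CPM in lower-dose cTEC, 1.79, 1.999 and 1.14 in higher-dose cTEC, 10.3 and 9.796 in lower-dose mTEC and 74.1 and 57.3 in higher-dose mTEC. At the lower dose cTEC and mTEC held about the same level, while at the higher dose mTEC held far more. Spink5 rose in cTEC with no overlap (log2 fold change 2.87 ± 0.25, adjusted p = 7.3e-07) and fell in mTEC with no overlap (-2.71 ± 0.21, adjusted p = 5.3e-07), and its interaction was -5.58 ± 0.32 (adjusted p = 7.2e-08). Grhl3, a grainyhead-like factor of the epidermal barrier, stood at 6.03, 4.67 and 8.52 CPM in lower-dose cTEC, 0.818, 0.6497 and 0.416 in higher-dose cTEC, 10.8 and 11.5 in lower-dose mTEC and 27.7 and 24.3 in higher-dose mTEC. Grhl3 rose in cTEC with no overlap (log2 fold change 3.34 ± 0.28, adjusted p = 5.8e-07) and fell in mTEC with no overlap (-1.22 ± 0.20, adjusted p = 1.9e-04), and its interaction was -4.55 ± 0.35 (adjusted p = 5.9e-07). Ivl (involucrin) had log2 fold changes of 2.46 in cTEC and -2.68 in mTEC, Lypd3 1.70 in cTEC and -2.66 in mTEC, and Krt1 2.29 in cTEC and -1.96 in mTEC, all with called interactions. Krt10, the partner of Krt1, fell by 1.69 in mTEC and was not called in cTEC (0.17 ± 0.12, adjusted p = 0.29).

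Keratin and junction genes of simple and basal epithelia moved in both directions. Of 23 members, 15 rose and 6 fell in cTEC, 2 rose and 15 fell in mTEC, and the interaction was called higher for 5 and lower for 13. Shares of all genes were 20.9% up and 21.9% down in cTEC, and 28.9% up and 30.8% down in mTEC. For the interaction they were 25.2% higher and 17.2% lower. The median log2 fold changes were 0.41 in cTEC, -0.36 in mTEC and -0.98 for the interaction, and 10 members rose in cTEC and fell in mTEC. Krt19, a keratin of simple and glandular epithelia, stood at 32.5, 37.99 and 25.7 CPM in lower-dose cTEC, 1.99, 2.15 and 1.25 in higher-dose cTEC, 45.2 and 35.1 in lower-dose mTEC and 129.7 and 112 in higher-dose mTEC. It was low in higher-dose cTEC and came close to the lower-dose mTEC level at the lower dose. Krt19 rose in cTEC with no overlap (log2 fold change 4.15 ± 0.21, adjusted p = 4.8e-09) and fell in mTEC with no overlap (-1.59 ± 0.16, adjusted p = 4.7e-06), and its interaction was -5.74 ± 0.27 (adjusted p = 1.2e-08). The basal pair Krt5 and Krt14 rose in cTEC only. Krt5 stood at 564, 584 and 493 CPM in lower-dose cTEC, 112, 90.5 and 111 in higher-dose cTEC, 1699.7 and 1755 in lower-dose mTEC and 1838 and 2101 in higher-dose mTEC, with the cTEC doses apart and the mTEC doses close. Krt5 rose in cTEC with no overlap (log2 fold change 2.39 ± 0.10, adjusted p = 7.2e-10) and was not called in mTEC, although the doses did not overlap (-0.19 ± 0.11, adjusted p = 0.15), and its interaction was -2.58 ± 0.15 (adjusted p = 6.0e-08). Krt14 had log2 fold changes of 2.16 in cTEC and -0.13 in mTEC. Under RLE size factors both were also called down in mTEC. Tight junction claudins moved in opposite directions in the compartments: Cldn4 had log2 fold changes of 1.65 in cTEC and -2.17 in mTEC, Cldn3 2.37 in cTEC and -0.37 in mTEC and Cldn7 0.89 in cTEC and -0.92 in mTEC, each called in both compartments. The simple keratins Krt8 and Krt18 stand apart, since they fell in both. Krt15, a basal keratin, had log2 fold changes of 4.87 in cTEC and 0.31 in mTEC, and the mTEC value was called in 3 of the 10 fits that leave out 1 library, among them the fit without higher-dose mTEC library 2 (0.51, adjusted p = 0.012). Col17a1, a hemidesmosomal collagen of basal cells, stood at 48.96, 46.2 and 47.5 CPM in lower-dose cTEC, 16.2, 17.2 and 16.3 in higher-dose cTEC, 92.8 and 94.3 in lower-dose mTEC and 106 and 118 in higher-dose mTEC. Col17a1 rose in cTEC with no overlap (log2 fold change 1.52 ± 0.06, adjusted p = 1.1e-09) and fell in mTEC with no overlap (-0.26 ± 0.07, adjusted p = 0.0053), and its interaction was -1.78 ± 0.09 (adjusted p = 3.3e-08). Itgb4, the integrin subunit of the same structure, rose in mTEC only (0.13 in cTEC and 0.73 in mTEC). Sorted gates include other epithelial subtypes, and whether the share of keratinocyte-like cells differed between doses was not tested.

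**Figure D3:**
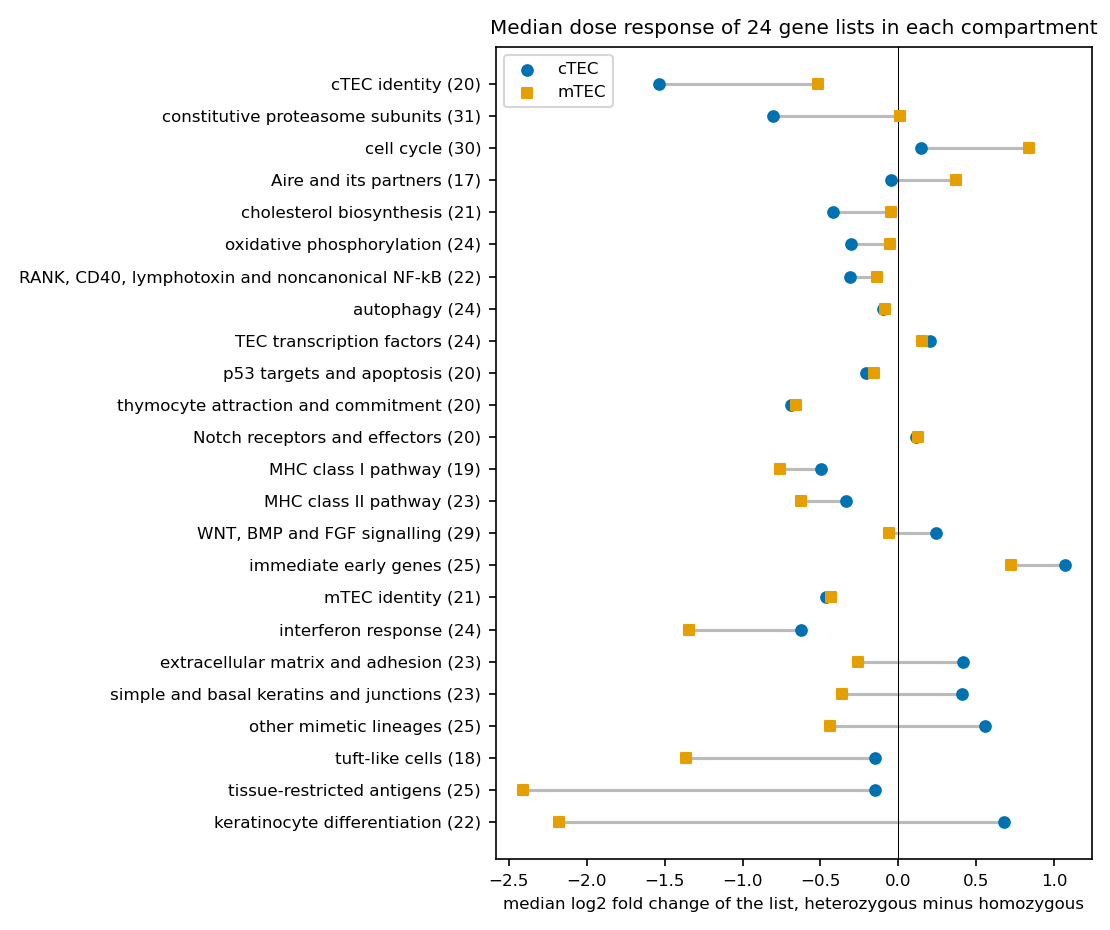
Median log2 fold change of lower over higher dose for 24 gene lists, with the number of tested members in brackets, as circles for cTEC and squares for mTEC. Genes with 3 counts or fewer in a group are entered at their bound. Lists are sorted by the median interaction, with keratinocyte differentiation at one end, where cTEC lies above 0 and mTEC below, and cTEC identity and the constitutive proteasome at the other, where cTEC lies below mTEC.

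mTEC identity genes mostly fell in mTEC and split in cTEC. Of 21 members, 8 rose and 11 fell in cTEC, 3 rose and 13 fell in mTEC, and the interaction was called higher for 3 and lower for 10, with medians of -0.47 in cTEC, -0.43 in mTEC and -0.50 for the interaction. Shares of all genes were 20.9% up and 21.9% down in cTEC, and 28.9% up and 30.8% down in mTEC. For the interaction they were 25.2% higher and 17.2% lower. Without lower-dose cTEC library 1 the median interaction was 0.09, so its sign rests on that library. Aire, given above, showed no called interaction. Aire fell in cTEC with overlap of the doses (log2 fold change -0.80 ± 0.25, adjusted p = 0.021) and was not called in mTEC, where the doses overlapped (-0.11 ± 0.12, adjusted p = 0.45), and its interaction was 0.69 ± 0.28 (adjusted p = 0.066). The interaction was called without higher-dose cTEC library 3 (0.95, adjusted p = 0.0032). Fezf2, a factor for Aire-independent antigens, fell in mTEC, with 204 and 208 CPM at the lower dose and 282 and 273 at the higher. Fezf2 fell in cTEC with no overlap (log2 fold change -1.32 ± 0.29, adjusted p = 0.0024) and fell in mTEC with no overlap (-0.43 ± 0.07, adjusted p = 1.8e-04), and its interaction was 0.89 ± 0.30 (adjusted p = 0.050). Its interaction was called in 3 of the 10 fits that leave out 1 library, with 1.30, adjusted p = 0.019 without lower-dose cTEC library 1, 1.01, adjusted p = 0.040 without higher-dose cTEC library 3 and 0.92, adjusted p = 0.047 without higher-dose mTEC library 1. Tnfrsf11a, which encodes the receptor RANK that drives mTEC maturation, had log2 fold changes of 0.20 in cTEC and 0.23 in mTEC and no called interaction (0.02 ± 0.15, adjusted p = 0.95). Its soluble decoy receptor Tnfrsf11b stood at 5.75, 3.2996 and 6.02 CPM in lower-dose cTEC, 2.25, 2.399 and 2.13 in higher-dose cTEC, 122 and 127 in lower-dose mTEC and 245 and 229.7 in higher-dose mTEC. Tnfrsf11b rose in cTEC with no overlap (log2 fold change 1.15 ± 0.20, adjusted p = 4.0e-04) and fell in mTEC with no overlap (-0.93 ± 0.12, adjusted p = 2.9e-05), and its interaction was -2.08 ± 0.23 (adjusted p = 1.5e-05). Ccl21a, the mTEC chemokine for CCR7-bearing thymocytes, stood at 134, 129 and 59.9 CPM in lower-dose cTEC, 39.3, 56.5 and 61.7 in higher-dose cTEC, 1507 and 1544 in lower-dose mTEC and 1693 and 1915 in higher-dose mTEC. Its cTEC doses overlapped. Ccl21a rose in cTEC with overlap of the doses (log2 fold change 1.03 ± 0.24, adjusted p = 0.0033) and was not called in mTEC, although the doses did not overlap (-0.24 ± 0.27, adjusted p = 0.46), and its interaction was -1.27 ± 0.36 (adjusted p = 0.012). The interaction was not called without higher-dose mTEC library 2 (-1.18, adjusted p = 0.078), nor with robust spread or with every gene kept, and the reads of Ccl21 copies can be split between near-identical genes.

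Tuft-like genes fell in mTEC, and other mimetic lineages were mixed. All 18 tuft-like genes fell in mTEC, against 30.8% of all genes, while 4 rose and 2 fell in cTEC. For 4 of the 18 a group held 3 counts or fewer. Genes this low pass the filter on low counts through the group where they are high, so their fall in mTEC is a description. The interaction was lower for 9 and higher for none, and 4 members, Trpm5, Dclk1, Alox5 and Ptgs1, rose in cTEC and fell in mTEC. The medians were -0.10 in cTEC, -1.36 in mTEC and -1.25 for the interaction, and the cTEC median turns to 0.02 with no factors and to 0.29 without higher-dose cTEC library 2. Ptgs1, which encodes the prostaglandin enzyme COX-1 of tuft cells, stood at 5.66, 4.17 and 5.88 CPM in lower-dose cTEC, 1.89, 1.599 and 1.35 in higher-dose cTEC, 26.9 and 24.4 in lower-dose mTEC and 67.6 and 59.7 in higher-dose mTEC. Ptgs1 rose in cTEC with no overlap (log2 fold change 1.69 ± 0.18, adjusted p = 4.6e-06) and fell in mTEC with no overlap (-1.31 ± 0.12, adjusted p = 2.6e-06), and its interaction was -3.00 ± 0.21 (adjusted p = 3.7e-07). Dclk1, a kinase used as a tuft cell marker, stood at 11.3, 11.9 and 8.52 CPM in lower-dose cTEC, 7.11, 6.897 and 6.92 in higher-dose cTEC, 80.4 and 76.6 in lower-dose mTEC and 170.1 and 161 in higher-dose mTEC, so that the cTEC shift was small beside the mTEC one. Dclk1 rose in cTEC with no overlap (log2 fold change 0.60 ± 0.11, adjusted p = 7.5e-04) and fell in mTEC with no overlap (-1.08 ± 0.10, adjusted p = 1.7e-06), and its interaction was -1.68 ± 0.15 (adjusted p = 2.1e-06). Of 26 tissue-restricted antigens 25 passed the filter on low counts, 17 of them with 3 counts or fewer in a group, mostly in cTEC. All 25 fell in mTEC, but such genes pass the filter through the group where they are high, so the count is a description. The interaction was called lower for 4, which is near the 17.2% of all genes. Reg3g, an antimicrobial lectin of the gut and an Aire-dependent antigen, stood at 8.77, 7.38 and 5.15 CPM in lower-dose cTEC, 7.67, 5.95 and 4.68 in higher-dose cTEC, 148 and 157 in lower-dose mTEC and 882 and 715 in higher-dose mTEC. It fell several-fold in mTEC, and its cTEC doses overlapped at a low level. Reg3g was not called in cTEC, where the doses overlapped (log2 fold change 0.22 ± 0.20, adjusted p = 0.42) and fell in mTEC with no overlap (-2.39 ± 0.16, adjusted p = 1.4e-07), and its interaction was -2.60 ± 0.25 (adjusted p = 4.5e-06). Klk1, a tissue kallikrein, stood at 6.26, 4.26 and 4.603 CPM in lower-dose cTEC, 1.58, 0.2499 and 0.5199 in higher-dose cTEC, 18.2 and 16.6 in lower-dose mTEC and 75.2 and 47.2 in higher-dose mTEC. Klk1 rose in cTEC with no overlap (log2 fold change 2.68 ± 0.41, adjusted p = 1.3e-04) and fell in mTEC with no overlap (-1.81 ± 0.26, adjusted p = 6.5e-05), and its interaction was -4.49 ± 0.48 (adjusted p = 9.5e-06). Among 25 genes of other mimetic lineages, 9 rose and 5 fell in cTEC, 5 rose and 13 fell in mTEC, and the interaction was called higher for 3 and lower for 11, with medians of 0.55 in cTEC, -0.44 in mTEC and -1.09 for the interaction. For 6 of these 25 a group held 3 counts or fewer. Shares of all genes were 20.9% up and 21.9% down in cTEC, and 28.9% up and 30.8% down in mTEC. Hnf4g, a nuclear receptor of intestinal epithelium, stood at 8.12, 6.78 and 7.84 CPM in lower-dose cTEC, 4.19, 4.098 and 4.89 in higher-dose cTEC, 6.98 and 7.27 in lower-dose mTEC and 28.96 and 29.4 in higher-dose mTEC. At the lower dose both compartments held about the same level. Hnf4g rose in cTEC with no overlap (log2 fold change 0.79 ± 0.12, adjusted p = 1.1e-04) and fell in mTEC with no overlap (-2.03 ± 0.12, adjusted p = 6.7e-08), and its interaction was -2.82 ± 0.17 (adjusted p = 9.4e-08). The ciliated-cell factor Foxj1 fell in both, by log2 changes of -2.15 in cTEC and -0.82 in mTEC.

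Most MHC pathway genes fell in each compartment, against 21.9% of all genes in cTEC and 30.8% in mTEC. Of 19 class I pathway genes, 2 rose and 13 fell in cTEC, 0 rose and 16 fell in mTEC, and the interaction was called higher for 1 and lower for 7, with medians of -0.50 in cTEC, -0.76 in mTEC and -0.20 for the interaction. Of 23 class II pathway genes, 4 rose and 16 fell in cTEC, 3 rose and 17 fell in mTEC, and the interaction was called higher for 6 and lower for 10, with medians of -0.34 in cTEC, -0.63 in mTEC and -0.23 for the interaction. The class II chain genes H2-Aa, H2-Ab1 and H2-Eb1 fell in both and more in mTEC, with interactions of -0.38, -0.62 and -0.58, each called, while the cTEC proteases Prss16 and Ctsl fell more in cTEC. H2-Aa, a class II chain, stood at 1738, 1585 and 1641 CPM in lower-dose cTEC, 2311, 2372 and 2366 in higher-dose cTEC, 2074 and 1996 in lower-dose mTEC and 3940.3 and 3606 in higher-dose mTEC. H2-Aa fell in cTEC with no overlap (log2 fold change -0.51 ± 0.06, adjusted p = 2.4e-05) and fell in mTEC with no overlap (-0.89 ± 0.08, adjusted p = 1.4e-06), and its interaction was -0.38 ± 0.10 (adjusted p = 0.0074). H2-Ob, the beta chain of the H2-O regulator that restrains class II peptide loading, stood at 7.24, 5.45 and 6.74 CPM in lower-dose cTEC, 2.86, 2.75 and 2.91 in higher-dose cTEC, 7.82 and 9.53 in lower-dose mTEC and 33.6 and 34.2 in higher-dose mTEC. At the higher dose mTEC held far more than cTEC, and at the lower dose the compartments came close. H2-Ob rose in cTEC with no overlap (log2 fold change 1.19 ± 0.14, adjusted p = 1.7e-05) and fell in mTEC with no overlap (-1.96 ± 0.13, adjusted p = 1.7e-07), and its interaction was -3.15 ± 0.20 (adjusted p = 1.2e-07). Ctsz, the lysosomal protease cathepsin Z, stood at 36.01, 32.5 and 40.2 CPM in lower-dose cTEC, 14.7, 14.9 and 14.04 in higher-dose cTEC, 158 and 146 in lower-dose mTEC and 295 and 304 in higher-dose mTEC. Ctsz rose in cTEC with no overlap (log2 fold change 1.32 ± 0.08, adjusted p = 2.9e-08) and fell in mTEC with no overlap (-0.98 ± 0.08, adjusted p = 8.6e-07), and its interaction was -2.29 ± 0.11 (adjusted p = 2.0e-08). Ciita, the class II transactivator, had log2 fold changes of -0.23 in cTEC and 0.27 in mTEC and an interaction of 0.50 ± 0.12 (adjusted p = 0.0036). Both effects were small, and its class was kept in 4 of the 10 fits that leave out 1 library, with adjusted p up to 0.090 in cTEC, without lower-dose libraries 2 or 3 or higher-dose libraries 1 or 2 of cTEC, and up to 0.12 in mTEC, without lower-dose library 2 or higher-dose library 1. Macrophages and dendritic cells also express class II genes, H2-Ob, Ctsz, Cd14 and Lyz2. Their marker sum was 136 to 141 CPM in lower-dose mTEC and 584 to 677 in higher-dose mTEC, and its part in these mTEC falls was not tested. In cTEC the same sum was 9.98 to 11.9 at the lower and 8.32 to 11.8 at the higher dose.

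The interferon response fell more in mTEC. Of 24 genes, 0 rose and 16 fell in cTEC, 0 rose and 22 fell in mTEC, and the interaction was called higher for 0 and lower for 13. Over all genes 21.9% fell in cTEC, 30.8% fell in mTEC and 17.2% had a lower interaction. The medians were -0.63 in cTEC, -1.35 in mTEC and -0.68 for the interaction. By class 8 fell in both and more in mTEC, against 0.9% of all genes, and 5 were called in mTEC only. Ifit1, an interferon-induced RNA-binding protein, stood at 71.6, 31.8 and 59.7 CPM in lower-dose cTEC, 89.6, 77.5 and 81.5 in higher-dose cTEC, 36.3 and 35.9 in lower-dose mTEC and 171 and 164 in higher-dose mTEC. Lower-dose cTEC library 2 lay well below its 2 partners, which lay just under the higher dose. Ifit1 fell in cTEC with no overlap (log2 fold change -0.61 ± 0.20, adjusted p = 0.023) and fell in mTEC with no overlap (-2.21 ± 0.25, adjusted p = 9.4e-06), and its interaction was -1.60 ± 0.31 (adjusted p = 0.0011). Irf7, the factor that amplifies type I interferon expression, stood at 71.05, 35.4 and 48.7 CPM in lower-dose cTEC, 75.7, 70.7 and 63.6 in higher-dose cTEC, 59.6 and 56.3 in lower-dose mTEC and 211 and 199 in higher-dose mTEC. Its cTEC doses overlapped and its mTEC doses lay far apart. Irf7 was not called in cTEC, where the doses overlapped (log2 fold change -0.44 ± 0.17, adjusted p = 0.058) and fell in mTEC with no overlap (-1.82 ± 0.21, adjusted p = 1.2e-05), and its interaction was -1.39 ± 0.27 (adjusted p = 0.0011). Oasl1, an interferon-induced regulator of Irf7 translation, stood at 3.62, 2.796 and 3.14 CPM in lower-dose cTEC, 5.11, 4.55 and 3.74 in higher-dose cTEC, 17.2 and 18.1 in lower-dose mTEC and 66.1 and 69.1 in higher-dose mTEC. Oasl1 fell in cTEC with no overlap (log2 fold change -0.49 ± 0.14, adjusted p = 0.012) and fell in mTEC with no overlap (-1.94 ± 0.11, adjusted p = 4.7e-08), and its interaction was -1.45 ± 0.18 (adjusted p = 3.3e-05). Without higher-dose cTEC library 1 its cTEC effect was -0.38, adjusted p = 0.060.

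RANK, CD40 and the lymphotoxin receptor signal through NF-kB to mature mTEC, and the mRNA of genes of this pathway was compared, with 21.9% of all genes falling in cTEC and 30.8% in mTEC. Of 22 genes, 3 rose and 14 fell in cTEC, 2 rose and 8 fell in mTEC, and the interaction was called higher for 9 and lower for 3, with medians of -0.31 in cTEC, -0.14 in mTEC and 0.19 for the interaction. 6 were called down in cTEC only: Ltbr, Traf3, Ikbkb, Nfkb2, Relb and Birc3. In a fit of all 20 libraries the interaction was called higher for 0 of the list and lower for 2. Relb and Nfkb2 encode the noncanonical NF-kB dimer, with -0.81 in cTEC and -0.01 in mTEC for Relb and -0.83 in cTEC and 0.03 in mTEC for Nfkb2. Cd40, the receptor for thymocyte CD40 ligand, stood at 7.84, 9.44 and 5.74 CPM in lower-dose cTEC, 29.3, 27.5 and 33.7 in higher-dose cTEC, 88.2 and 90.3 in lower-dose mTEC and 142 and 123 in higher-dose mTEC. Cd40 fell in cTEC with no overlap (log2 fold change -1.97 ± 0.14, adjusted p = 9.4e-08) and fell in mTEC with no overlap (-0.57 ± 0.13, adjusted p = 0.0021), and its interaction was 1.40 ± 0.19 (adjusted p = 6.8e-05). Traf1, an adaptor of TNF receptors, took the opposite pattern, with 4.13, 5.36 and 3.78 CPM in lower-dose cTEC, 1.79, 1.35 and 1.51 in higher-dose cTEC, 32.1 and 31.5 in lower-dose mTEC and 70.8 and 75.1 in higher-dose mTEC. Traf1 rose in cTEC with no overlap (log2 fold change 1.51 ± 0.17, adjusted p = 7.0e-06) and fell in mTEC with no overlap (-1.20 ± 0.11, adjusted p = 1.7e-06), and its interaction was -2.71 ± 0.20 (adjusted p = 4.0e-07). Nfkbie, an inhibitor of NF-kB, had log2 fold changes of -1.04 in cTEC and 0.21 in mTEC and an interaction of 1.26 ± 0.11 (adjusted p = 2.1e-06). Its mTEC effect was not called in 7 of the 10 fits that leave out 1 library, those without any 1 mTEC library or any 1 higher-dose cTEC library (adjusted p up to 0.14). Among 20 attraction and commitment genes, 3 rose and 14 fell in cTEC, 3 rose and 15 fell in mTEC, and the interaction was called higher for 7 and lower for 5. Their interactions do not share a direction: the median was 0.04, and -0.09 with RLE size factors. Ccl25, Cxcl12, Dll4 and Vcam1 fell more in cTEC, Ccl19 and Cxcl16 more in mTEC, and the Notch ligands Dll1 and Jag2 rose in mTEC only, by 0.92 and 1.05. Cxcl16, a chemokine and scavenger receptor, had log2 fold changes of -0.46 in cTEC and -1.09 in mTEC. Its interaction was not called without higher-dose mTEC library 1 (-0.57, adjusted p = 0.066).

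Cell cycle genes rose in mTEC at the lower dose. Of 30 members, 10 rose and 0 fell in cTEC, 28 rose and 1 fell in mTEC, and the interaction was called higher for 22 and lower for 1, with medians of 0.14 in cTEC, 0.84 in mTEC and 0.61 for the interaction. By class 17 were called in mTEC only, against 9.9% of all genes, and 5 rose in both but more in mTEC. With RLE size factors the interaction was higher for 16 and with no factors for 14, and in the fit of all 20 libraries for 0. Top2a, the topoisomerase of dividing cells, stood at 205, 243 and 188 CPM in lower-dose cTEC, 180.2, 200.4 and 205 in higher-dose cTEC, 184 and 184 in lower-dose mTEC and 88.5 and 96.6 in higher-dose mTEC. The cTEC doses overlapped, and lower-dose mTEC reached the cTEC level. Top2a was not called in cTEC, where the doses overlapped (log2 fold change 0.12 ± 0.08, adjusted p = 0.30) and rose in mTEC with no overlap (0.99 ± 0.11, adjusted p = 7.0e-06), and its interaction was 0.87 ± 0.14 (adjusted p = 2.0e-04). Without lower-dose cTEC library 3 it was also called in cTEC (0.22, adjusted p = 0.048). Cdc20, an activator of the anaphase-promoting complex, stood at 45.8, 49.6 and 39.5 CPM in lower-dose cTEC, 41.9, 50.6 and 49.5 in higher-dose cTEC, 46.8 and 43.97 in lower-dose mTEC and 24.1 and 27.003 in higher-dose mTEC. Cdc20 was not called in cTEC, where the doses overlapped (log2 fold change -0.08 ± 0.09, adjusted p = 0.56) and rose in mTEC with no overlap (0.83 ± 0.12, adjusted p = 6.0e-05), and its interaction was 0.90 ± 0.15 (adjusted p = 3.2e-04). Myc, a factor that promotes growth, stood at 100.3, 96.7 and 102 CPM in lower-dose cTEC, 105, 105 and 98.9 in higher-dose cTEC, 86.5 and 82.8 in lower-dose mTEC and 48.96 and 53.6 in higher-dose mTEC. Myc was not called in cTEC, where the doses overlapped (log2 fold change -0.04 ± 0.05, adjusted p = 0.56) and rose in mTEC with no overlap (0.72 ± 0.07, adjusted p = 2.4e-06), and its interaction was 0.77 ± 0.09 (adjusted p = 1.6e-05). Thymocytes also divide, and their markers summed in mTEC to 196 to 232 CPM at the higher and 116.9 to 117.2 at the lower dose. Their part in the cell cycle values was not tested.

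Genes for proteins that bind Aire or act with it, among them DNA topoisomerases and the DNA repair complex, were set against the 28.9% of all genes that rose in mTEC and the 20.9% in cTEC. Of 17 genes, 0 rose and 3 fell in cTEC, 12 rose and 1 fell in mTEC, and the interaction was called higher for 12 and lower for 1, with medians of -0.05 in cTEC, 0.37 in mTEC and 0.45 for the interaction. Top2a is on both lists. Under RLE scaling 8 rose in mTEC, and with no factors 6 rose in cTEC. Sirt1, the deacetylase that activates Aire, was the exception. It stood at 42.6, 41.8 and 41.2 CPM in lower-dose cTEC, 40.3, 38.3 and 39.2 in higher-dose cTEC, 102 and 109 in lower-dose mTEC and 293 and 293 in higher-dose mTEC: cTEC levels lay close at both doses, while higher-dose mTEC held far more than lower-dose mTEC. Sirt1 was not called in cTEC, although the doses did not overlap (log2 fold change 0.09 ± 0.05, adjusted p = 0.18) and fell in mTEC with no overlap (-1.47 ± 0.06, adjusted p = 4.3e-09), and its interaction was -1.56 ± 0.08 (adjusted p = 2.2e-08). Hipk2, a kinase that binds Aire, stood at 92.5, 84.5 and 91.1 CPM in lower-dose cTEC, 78.8, 83.3 and 82.1 in higher-dose cTEC, 57.4 and 65.03 in lower-dose mTEC and 22.9 and 27.05 in higher-dose mTEC. Hipk2 was not called in cTEC, although the doses did not overlap (log2 fold change 0.13 ± 0.07, adjusted p = 0.14) and rose in mTEC with no overlap (1.29 ± 0.09, adjusted p = 2.2e-07), and its interaction was 1.16 ± 0.11 (adjusted p = 5.1e-06). Xrcc5, the Ku80 subunit of the DNA repair complex, stood at 159, 165 and 152 CPM in lower-dose cTEC, 195, 218 and 207 in higher-dose cTEC, 78.4 and 82.8 in lower-dose mTEC and 48.4 and 52.2 in higher-dose mTEC. Xrcc5 fell in cTEC with no overlap (log2 fold change -0.38 ± 0.06, adjusted p = 1.2e-04) and rose in mTEC with no overlap (0.68 ± 0.07, adjusted p = 8.5e-06), and its interaction was 1.06 ± 0.09 (adjusted p = 2.2e-06).

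Notch receptors and effectors moved in both directions. Of 21 genes 20 were tested. Among them 10 rose and 6 fell in cTEC, 8 rose and 4 fell in mTEC, and the interaction was called higher for 7 and lower for 7, with medians of 0.11 in cTEC, 0.13 in mTEC and -0.15 for the interaction. Over all genes the dose effect was called for 42.8% in cTEC and 59.7% in mTEC, and the interaction for 42.5%. The mTEC median was -0.05 with every gene kept in the fit. Notch3, a receptor best known in vascular smooth muscle, stood at 103, 63.4 and 115 CPM in lower-dose cTEC, 7.11, 6.25 and 6.45 in higher-dose cTEC, 28.4 and 32.1 in lower-dose mTEC and 24.9 and 24.8 in higher-dose mTEC. It was low in higher-dose cTEC, below mTEC, and lower-dose cTEC exceeded mTEC. Notch3 rose in cTEC with no overlap (log2 fold change 3.83 ± 0.19, adjusted p = 5.9e-09) and was not called in mTEC, although the doses did not overlap (0.28 ± 0.21, adjusted p = 0.26), and its interaction was -3.54 ± 0.29 (adjusted p = 1.0e-06). Without lower-dose cTEC library 2 the mTEC effect was 0.28, adjusted p = 0.011. Dtx4, a Deltex ubiquitin ligase that regulates Notch, showed the reverse, with 12.1, 16.6 and 9.02 CPM in lower-dose cTEC, 121, 117 and 115 in higher-dose cTEC, 36.3 and 32.8 in lower-dose mTEC and 23.4 and 27.7 in higher-dose mTEC. Dtx4 fell in cTEC with no overlap (log2 fold change -3.22 ± 0.15, adjusted p = 2.6e-09) and rose in mTEC with no overlap (0.43 ± 0.17, adjusted p = 0.043), and its interaction was 3.66 ± 0.23 (adjusted p = 1.2e-07). The mTEC rise was small and was not called in 7 of the 10 fits that leave out 1 library, those without any 1 mTEC library or any 1 higher-dose cTEC library (adjusted p up to 0.28), and the cTEC fall was called in all 10. The fringe glycosyltransferases, which tune the response of Notch to its ligands, went apart: Mfng had log2 fold changes of -1.55 in cTEC and 0.58 in mTEC and Lfng 1.52 in cTEC and -0.61 in mTEC. Lfng was not called in mTEC without lower-dose mTEC library 2 (-0.48, adjusted p = 0.064) or higher-dose mTEC library 1 (-0.47, adjusted p = 0.062). Jag1, a Notch ligand, stood at 119, 92.1 and 128 CPM in lower-dose cTEC, 43.7, 40.3 and 44.1 in higher-dose cTEC, 50.6 and 51.6 in lower-dose mTEC and 61.96 and 75.8 in higher-dose mTEC. Jag1 rose in cTEC with no overlap (log2 fold change 1.40 ± 0.11, adjusted p = 2.9e-07) and fell in mTEC with no overlap (-0.43 ± 0.13, adjusted p = 0.013), and its interaction was -1.83 ± 0.17 (adjusted p = 3.4e-06). Its mTEC effect was not called without lower-dose mTEC library 1 (-0.42, adjusted p = 0.053) or higher-dose mTEC library 2 (-0.27, adjusted p = 0.18). Notch1 rose in both, by log2 changes of 1.58 in cTEC and 1.18 in mTEC, with no called interaction (adjusted p = 0.12).

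WNT, BMP and FGF signals pattern the thymic primordium and maintain its epithelium. Of 29 genes, 14 rose and 4 fell in cTEC, 10 rose and 6 fell in mTEC, and the interaction was called higher for 4 and lower for 12, with medians of 0.24 in cTEC, -0.06 in mTEC and -0.25 for the interaction. Shares of all genes were 20.9% up in cTEC, 28.9% up and 30.8% down in mTEC, and 25.2% higher and 17.2% lower for the interaction. With RLE size factors 8 rose and 10 fell in mTEC. Without higher-dose mTEC library 2 the mTEC median was 0.10. Bmp2 stood at 12.5, 8.43 and 13.8 CPM in lower-dose cTEC, 3.32, 2.199 and 3.12 in higher-dose cTEC, 26.1 and 30.5 in lower-dose mTEC and 63.1 and 63.7 in higher-dose mTEC. Bmp2 rose in cTEC with no overlap (log2 fold change 2.01 ± 0.19, adjusted p = 2.2e-06) and fell in mTEC with no overlap (-1.16 ± 0.16, adjusted p = 6.0e-05), and its interaction was -3.17 ± 0.25 (adjusted p = 9.4e-07). The BMP-induced inhibitors Id1 and Id3 had log2 fold changes of 1.83 in cTEC and -0.43 in mTEC and 1.88 in cTEC and -0.41 in mTEC, and Id2 2.92 in cTEC and -0.12 in mTEC, so that all 3 rose in cTEC. Bmp4 rose in both by log2 changes of 3.34 in cTEC and 2.70 in mTEC, with no called interaction (adjusted p = 0.25). Wnt4, a WNT ligand reported to promote Foxn1 expression in mouse thymic epithelium, stood at 418, 403 and 383 CPM in lower-dose cTEC, 669, 615 and 639 in higher-dose cTEC, 146 and 157 in lower-dose mTEC and 107 and 114 in higher-dose mTEC, ordered as Foxn1 was. Wnt4 fell in cTEC with no overlap (log2 fold change -0.68 ± 0.06, adjusted p = 8.5e-07) and rose in mTEC with no overlap (0.45 ± 0.07, adjusted p = 1.9e-04), and its interaction was 1.13 ± 0.09 (adjusted p = 1.3e-06). Wnt5a and Fgfr1 rose in both and more in cTEC, by log2 changes of 3.28 in cTEC and 0.56 in mTEC for Wnt5a and 2.51 in cTEC and 1.26 in mTEC for Fgfr1. Wnt5a was not called in mTEC without lower-dose mTEC library 2 (0.43, adjusted p = 0.058) or higher-dose mTEC library 1 (0.39, adjusted p = 0.092).

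Of 23 matrix and adhesion genes, 10 rose and 5 fell in cTEC, against 20.9% and 21.9% of all genes. In mTEC 3 rose and 8 fell, against 28.9% and 30.8%. Interaction calls were 3 higher and 12 lower, against 25.2% and 17.2%. Medians were 0.41 (cTEC), -0.26 (mTEC) and -0.76 (interaction). 7 were called up in cTEC only, against 4.72%. Col1a2, a chain of type I collagen and a fibroblast marker, stood at 40.1, 59.9 and 37.6 CPM in lower-dose cTEC, 4.04, 5.45 and 4.16 in higher-dose cTEC, 15.6 and 11.1 in lower-dose mTEC and 13.7 and 16.4 in higher-dose mTEC. Col1a2 rose in cTEC with no overlap (log2 fold change 3.33 ± 0.20, adjusted p = 3.1e-08) and was not called in mTEC, where the doses overlapped (-0.17 ± 0.23, adjusted p = 0.53), and its interaction was -3.51 ± 0.31 (adjusted p = 2.0e-06). Its partner chain Col1a1 stood at 0.743, 0.458 and 0.365 CPM in lower-dose and 0.971, 0.7496 and 0.25996 in higher-dose cTEC, so its doses overlapped. Igfbp5, a secreted binding protein of insulin-like growth factors, stood at 1215, 444 and 1314 CPM in lower-dose cTEC, 24.3, 16.9 and 20.2 in higher-dose cTEC, 705 and 753 in lower-dose mTEC and 644 and 659.9 in higher-dose mTEC. Even lower-dose cTEC library 2, the lowest of its group, stood far above the higher dose. Igfbp5 rose in cTEC with no overlap (log2 fold change 5.60 ± 0.35, adjusted p = 3.5e-08) and was not called in mTEC, although the doses did not overlap (0.16 ± 0.34, adjusted p = 0.70), and its interaction was -5.44 ± 0.48 (adjusted p = 2.2e-06). Epyc, a small leucine-rich proteoglycan of cartilage, stood at 9.37, 11.2 and 14.8 CPM in lower-dose cTEC, 0.204, 0.1999 and 0.25996 in higher-dose cTEC, 29.7 and 33.2 in lower-dose mTEC and 37.6 and 35.7 in higher-dose mTEC. Epyc rose in cTEC with no overlap (log2 fold change 5.70 ± 0.27, adjusted p = 3.2e-09) and was not called in mTEC, although the doses did not overlap (-0.22 ± 0.15, adjusted p = 0.21), and its interaction was -5.92 ± 0.33 (adjusted p = 5.0e-08). The summed fibroblast markers were 375 to 378 CPM in lower-dose and 165 to 171 in higher-dose cTEC. Their part in these rises was not tested.

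Nuclear genes of the respiratory chain and of cholesterol synthesis fell mostly in cTEC, by small amounts. Over all genes 21.9% fell in cTEC, 28.9% rose and 30.8% fell in mTEC, and the interaction was higher for 25.2%. Of 24 oxidative phosphorylation genes, 0 rose and 20 fell in cTEC, 2 rose and 4 fell in mTEC, and the interaction was called higher for 14 and lower for 0, with medians of -0.30 in cTEC, -0.06 in mTEC and 0.30 for the interaction. The interaction was higher for 7 with RLE size factors and for 6 with no factors. Without higher-dose mTEC library 1 the mTEC median was 0.04. Ndufa4, a subunit associated with cytochrome c oxidase, stood at 87.6, 94.2 and 87.95 CPM in lower-dose cTEC, 131, 132 and 133 in higher-dose cTEC, 123 and 115 in lower-dose mTEC and 132 and 118 in higher-dose mTEC. Ndufa4 fell in cTEC with no overlap (log2 fold change -0.55 ± 0.06, adjusted p = 4.5e-06) and was not called in mTEC, where the doses overlapped (-0.07 ± 0.07, adjusted p = 0.39), and its interaction was 0.48 ± 0.09 (adjusted p = 8.8e-04). Of 21 cholesterol synthesis genes, 1 rose and 12 fell in cTEC, 4 rose and 4 fell in mTEC, and the interaction was called higher for 10 and lower for 1, with medians of -0.42 in cTEC, -0.05 in mTEC and 0.36 for the interaction. With RLE size factors 1 rose and 7 fell in mTEC. Without higher-dose mTEC library 1 the mTEC median was 0.01. Srebf2, the factor that drives these genes, stood at 328, 320.4 and 309 CPM in lower-dose cTEC, 437, 459.8 and 445 in higher-dose cTEC, 251 and 236 in lower-dose mTEC and 228 and 228 in higher-dose mTEC. Srebf2 fell in cTEC with no overlap (log2 fold change -0.49 ± 0.05, adjusted p = 5.3e-06) and was not called in mTEC, although the doses did not overlap (0.09 ± 0.06, adjusted p = 0.22), and its interaction was 0.58 ± 0.08 (adjusted p = 9.6e-05). Sqle (squalene epoxidase) had log2 fold changes of -0.87 in cTEC and -0.02 in mTEC and was called in cTEC only, while Hsd17b7 rose in mTEC (-0.25 in cTEC and 0.98 in mTEC).

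Autophagy supplies cytosolic peptides to MHC class II in thymic epithelium. Of 24 genes, 2 rose and 8 fell in cTEC, 5 rose and 8 fell in mTEC, and the interaction was called higher for 6 and lower for 2, against 30.8% of all genes falling in mTEC and 42.5% with a called interaction, so these shares are near or below the background. The median interaction was 0.14, and -0.01 with no factors. Wipi1, an early autophagosome protein, stood at 108, 95.7 and 109 CPM in lower-dose cTEC, 156, 155 and 153 in higher-dose cTEC, 124 and 117 in lower-dose mTEC and 56.98 and 62.7 in higher-dose mTEC. Wipi1 fell in cTEC with no overlap (log2 fold change -0.57 ± 0.06, adjusted p = 5.3e-06) and rose in mTEC with no overlap (1.01 ± 0.08, adjusted p = 3.8e-07), and its interaction was 1.58 ± 0.10 (adjusted p = 1.1e-07). Gabarapl1, an Atg8 family member, stood at 41.3, 34.3 and 38.6 CPM in lower-dose cTEC, 81.8, 82.6 and 78.2 in higher-dose cTEC, 51.9 and 56.8 in lower-dose mTEC and 57.9 and 52.8 in higher-dose mTEC, apart in cTEC and overlapping in mTEC. Gabarapl1 fell in cTEC with no overlap (log2 fold change -1.09 ± 0.07, adjusted p = 7.0e-08) and was not called in mTEC, where the doses overlapped (-0.03 ± 0.09, adjusted p = 0.80), and its interaction was 1.06 ± 0.11 (adjusted p = 1.1e-05). Of 20 p53 targets and apoptosis genes, 2 rose and 10 fell in cTEC, 3 rose and 9 fell in mTEC, and the interaction was called higher for 3 and lower for 6. With 42.5% of all genes called for the interaction, this share is near the background. Their median interaction was 0.09, and -0.04 with RLE size factors. Cdkn1a, the cell cycle inhibitor p21, fell in both and more in mTEC (-0.97 in cTEC and -1.81 in mTEC). Immediate early genes, which sorting and handling can induce, were mostly higher at the lower dose, against 20.9% of all genes rising in cTEC and 28.9% in mTEC. Of 25 genes, 18 rose and 0 fell in cTEC, 14 rose and 3 fell in mTEC, and the interaction was called higher for 3 and lower for 3. Fos had log2 fold changes of 2.87 in cTEC and 3.14 in mTEC and Egr1 1.99 in cTEC and 2.37 in mTEC, neither with a called interaction. Their part in other rises was not tested.

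**Figure D4:**
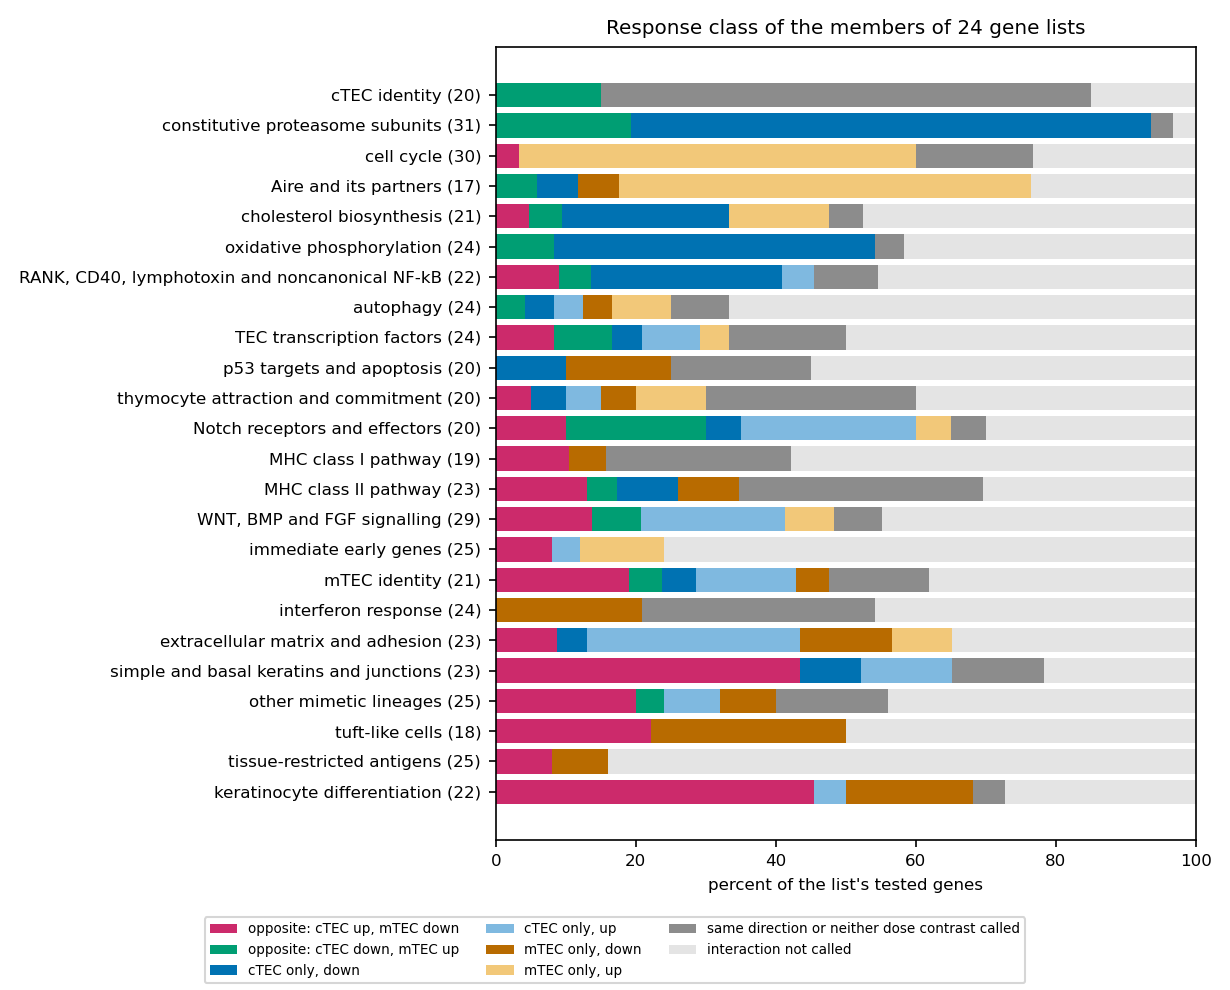
Percent of tested members of each of 24 gene lists in each response class, as stacked horizontal bars from 0 to 100, with the rest not called for the interaction. The constitutive proteasome is mostly called down in cTEC only, 10 of 22 keratinocyte differentiation genes are up in cTEC and down in mTEC, and cell cycle and Aire partners mostly up in mTEC only.

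Among 24 transcription factors of thymic epithelium, 12 rose and 7 fell in cTEC, 11 rose and 5 fell in mTEC, and the interaction was called higher for 8 and lower for 4. Over all genes the dose effect was called for 42.8% in cTEC and 59.7% in mTEC, and the interaction for 42.5%. The median interaction was 0.11, and -0.01 with RLE size factors, so the list as a whole had no stable direction. Ehf, an ETS factor of epithelia, stood at 11.8, 11.8 and 8.93 CPM in lower-dose cTEC, 2.15, 2.099 and 1.72 in higher-dose cTEC, 158 and 154 in lower-dose mTEC and 238 and 215 in higher-dose mTEC. Ehf rose in cTEC with no overlap (log2 fold change 2.44 ± 0.14, adjusted p = 2.1e-08) and fell in mTEC with no overlap (-0.54 ± 0.09, adjusted p = 2.8e-04), and its interaction was -2.98 ± 0.17 (adjusted p = 7.0e-08). Klf4, a factor of terminal epithelial differentiation, stood at 66.5, 39.5 and 25.5 CPM in lower-dose cTEC, 5.83, 3.85 and 5.15 in higher-dose cTEC, 70.6 and 61.2 in lower-dose mTEC and 60.7 and 56.6 in higher-dose mTEC. Its 3 lower-dose cTEC libraries varied widely but all lay above the higher dose. Klf4 rose in cTEC with no overlap (log2 fold change 3.15 ± 0.30, adjusted p = 2.1e-06) and was not called in mTEC, although the doses did not overlap (0.17 ± 0.28, adjusted p = 0.63), and its interaction was -2.98 ± 0.42 (adjusted p = 9.6e-05). Gata3, a factor of the pharyngeal pouches, had log2 fold changes of 2.54 in cTEC and -0.35 in mTEC. Pax9 and Hoxa3, factors of the third pouch, had log2 fold changes of 0.08 in cTEC and 0.84 in mTEC and 0.64 in cTEC and 1.04 in mTEC. Mafa, a bZIP factor known from pancreatic beta cells, stood at 19.4, 13.2 and 15.7 CPM in lower-dose cTEC, 53.99, 49.7 and 47.001 in higher-dose cTEC, 34.6 and 29.1 in lower-dose mTEC and 15.3 and 14.1 in higher-dose mTEC. Mafa fell in cTEC with no overlap (log2 fold change -1.64 ± 0.12, adjusted p = 1.4e-07) and rose in mTEC with no overlap (1.12 ± 0.15, adjusted p = 3.5e-05), and its interaction was 2.76 ± 0.19 (adjusted p = 2.7e-07). Foxa1, an endoderm pioneer factor, had log2 fold changes of 2.50 in cTEC and -0.57 in mTEC. Its mTEC effect was not called without lower-dose mTEC library 1 (-0.50, adjusted p = 0.071) or higher-dose mTEC library 1 (-0.46, adjusted p = 0.11).

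Genes were also taken by the size of the response within each class. Among genes falling in cTEC and rising in mTEC, Pcdh15, a protocadherin known from hair cells, stood at 1.53, 1.24 and 1.05 CPM in lower-dose cTEC, 11.7, 12.2 and 13.8 in higher-dose cTEC, 44.5 and 48.8 in lower-dose mTEC and 13.9 and 17.1 in higher-dose mTEC. At the higher dose the compartments lay close, and at the lower dose mTEC held far more. Pcdh15 fell in cTEC with no overlap (log2 fold change -3.30 ± 0.16, adjusted p = 3.2e-09) and rose in mTEC with no overlap (1.59 ± 0.13, adjusted p = 6.0e-07), and its interaction was 4.89 ± 0.20 (adjusted p = 4.6e-09). Tmem169, a transmembrane protein, stood at 53.8, 58.4 and 54.96 CPM in lower-dose cTEC, 140.4, 147 and 149.5 in higher-dose cTEC, 11.2 and 13.8 in lower-dose mTEC and 5.88 and 4.93 in higher-dose mTEC. Tmem169 fell in cTEC with no overlap (log2 fold change -1.39 ± 0.07, adjusted p = 6.1e-09) and rose in mTEC with no overlap (1.21 ± 0.12, adjusted p = 4.4e-06), and its interaction was 2.59 ± 0.14 (adjusted p = 4.3e-08). Snhg11, a small nucleolar RNA host gene, stood at 86.1, 45.6 and 106 CPM in lower-dose cTEC, 379, 216 and 299.7 in higher-dose cTEC, 55.6 and 55.2 in lower-dose mTEC and 12.8 and 17.5 in higher-dose mTEC, with wide spread in cTEC but no overlap. Snhg11 fell in cTEC with no overlap (log2 fold change -1.91 ± 0.25, adjusted p = 3.4e-05) and rose in mTEC with no overlap (1.87 ± 0.34, adjusted p = 4.8e-04), and its interaction was 3.78 ± 0.42 (adjusted p = 1.5e-05). In the class called down in cTEC only, Ppp1r27, a regulatory subunit of protein phosphatase 1, stood at 1.67, 1.51 and 1.55 CPM in lower-dose cTEC, 51.1, 53.4 and 45.8 in higher-dose cTEC, 6.58 and 6.92 in lower-dose mTEC and 6.09 and 4.76 in higher-dose mTEC. Ppp1r27 fell in cTEC with no overlap (log2 fold change -4.98 ± 0.12, adjusted p = 1.2e-11) and was not called in mTEC, although the doses did not overlap (0.31 ± 0.14, adjusted p = 0.070), and its interaction was 5.30 ± 0.19 (adjusted p = 2.0e-09). Without higher-dose mTEC library 1 its mTEC effect was 0.51, adjusted p = 0.019. Ebf1, a B cell factor, stood at 0.6497, 0.183 and 0.4101 CPM in lower-dose and 4.35, 4.698 and 5.62 in higher-dose cTEC. It is 1 of 10 B cell markers, which summed, Ebf1 included, to 6.65 to 8.68 CPM in lower-dose and 8.89 to 9.795 in higher-dose cTEC, and the part of such cells was not tested.

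In the class called up in cTEC only, Otog, a glycoprotein of the inner ear membranes, stood at 18.9, 24.4 and 26.8 CPM in lower-dose cTEC, 0.153, 0.3998 and 0.208 in higher-dose cTEC, 9.9995 and 9.22 in lower-dose mTEC and 7.12 and 8.57 in higher-dose mTEC. Otog rose in cTEC with no overlap (log2 fold change 6.49 ± 0.25, adjusted p = 4.6e-10) and was not called in mTEC, although the doses did not overlap (0.29 ± 0.18, adjusted p = 0.19), and its interaction was -6.19 ± 0.34 (adjusted p = 4.8e-08). Efhd1, a calcium-binding mitochondrial protein, stood at 55.5, 44.3 and 63.98 CPM in lower-dose cTEC, 1.79, 1.999 and 1.82 in higher-dose cTEC, 9.82 and 10.02 in lower-dose mTEC and 11.2 and 9.601 in higher-dose mTEC. Efhd1 rose in cTEC with no overlap (log2 fold change 4.86 ± 0.16, adjusted p = 1.1e-10) and was not called in mTEC, where the doses overlapped (-0.07 ± 0.16, adjusted p = 0.75), and its interaction was -4.93 ± 0.23 (adjusted p = 1.4e-08). In the class called down in mTEC only, Gipc2, a PDZ-domain protein, stood at 6.87, 4.81 and 6.61 CPM in lower-dose cTEC, 7.16, 7.596 and 7.28 in higher-dose cTEC, 1.24 and 1.77 in lower-dose mTEC and 13.8 and 11.2 in higher-dose mTEC. Lower-dose mTEC lay below cTEC, and higher-dose mTEC above it. Gipc2 was not called in cTEC, although the doses did not overlap (log2 fold change -0.27 ± 0.16, adjusted p = 0.19) and fell in mTEC with no overlap (-3.05 ± 0.22, adjusted p = 2.7e-07), and its interaction was -2.78 ± 0.27 (adjusted p = 5.1e-06). Lyz2, the macrophage lysozyme, stood at 2.37, 2.75 and 1.09 CPM in lower-dose cTEC, 2.71, 1.999 and 1.04 in higher-dose cTEC, 82.5 and 82.3 in lower-dose mTEC and 512 and 428 in higher-dose mTEC. Lyz2 was not called in cTEC, where the doses overlapped (log2 fold change 0.11 ± 0.33, adjusted p = 0.85) and fell in mTEC with no overlap (-2.51 ± 0.17, adjusted p = 1.4e-07), and its interaction was -2.62 ± 0.37 (adjusted p = 1.0e-04). It belongs to the macrophage markers described above, and the part of such cells was not tested. In the class called up in mTEC only, Rasl10b, a Ras-like GTPase, stood at 2.92, 4.03 and 3.19 CPM in lower-dose cTEC, 2.86, 3.198 and 2.55 in higher-dose cTEC, 16.3 and 14.8 in lower-dose mTEC and 4.98 and 4.24 in higher-dose mTEC. Rasl10b was not called in cTEC, where the doses overlapped (log2 fold change 0.24 ± 0.17, adjusted p = 0.29) and rose in mTEC with no overlap (1.75 ± 0.16, adjusted p = 2.6e-06), and its interaction was 1.51 ± 0.24 (adjusted p = 2.2e-04). Prokr1, a prokineticin receptor, rose in both and more in mTEC, with 22.97, 29.8 and 22.9 CPM in lower-dose cTEC, 17.5, 19.7 and 18.98 in higher-dose cTEC, 2.27 and 2.35 in lower-dose mTEC and 0.257 and 0.30004 in higher-dose mTEC. Prokr1 rose in cTEC with no overlap (log2 fold change 0.43 ± 0.11, adjusted p = 0.0056) and rose in mTEC with no overlap (3.02 ± 0.33, adjusted p = 8.2e-06), and its interaction was 2.59 ± 0.36 (adjusted p = 8.0e-05). Gpx3, a secreted glutathione peroxidase, fell in both and more in mTEC, with 3.02, 1.97 and 2.598 CPM in lower-dose cTEC, 3.58, 4.05 and 3.95 in higher-dose cTEC, 47.1 and 47.96 in lower-dose mTEC and 302 and 315 in higher-dose mTEC. Gpx3 fell in cTEC with no overlap (log2 fold change -0.61 ± 0.14, adjusted p = 0.0026) and fell in mTEC with no overlap (-2.70 ± 0.09, adjusted p = 9.5e-10), and its interaction was -2.09 ± 0.16 (adjusted p = 7.5e-07).

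The same interaction can be read as a change in the difference between the compartments. Of 13975 genes with a mean of at least 5 CPM in a group, the mTEC minus cTEC difference was nearer to 0 at the lower dose for 9795 and farther for 3951. These counts rest on log2 ratios of group mean CPM with no test, and genes with a mean of 0 in a group are left out. The order of the compartments turned for some genes that stood at least 2-fold apart in opposite directions at both doses. For 40 genes mTEC stood above cTEC at the higher dose and below it at the lower dose. The mTEC minus cTEC difference of Efhd1 was 2.47 at the higher and -2.46 at the lower dose, that of Notch3 1.91 at the higher and -1.63 at the lower dose and that of Col1a2 1.72 at the higher and -1.78 at the lower dose. For 11 genes mTEC stood below cTEC at the higher dose and above it at the lower dose, among them Ppp1r27 (-3.21 at the higher and 2.10 at the lower dose) and Dtx4 (-2.20 at the higher and 1.46 at the lower dose).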

How the data were processed

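The deposited table holds whole-number read counts for 38720 genes named by symbol, made by the authors. Per the submitters' processing notes the tools include TopHat2 2.0.10, Trimmomatic 0.32, featureCounts, SAMtools, Picard 1.105, Bowtie2 2.2.3, BWA 0.7.5 and MACS2 2.0.10, and the mouse builds are mm10 and GRCm38. The sources used here give neither annotation nor strand setting, so overlapping and antisense genes and near-identical copies may share counts. Chromatin data of the series were not used here.

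The 10 transgenic libraries were fitted in 1 model of 4 groups with edgeR 4.0.16 in R 4.3.3 (glmQLFit and glmQLFTest, TMM factors, filterByExpr with a minimum count of 10 and a minimum total of 15, prior count 0.125), which left 19222 genes. All groups share 1 estimate of the spread, since each mTEC group holds 2 libraries. Adjustment was by Benjamini-Hochberg over all genes tested. Intervals are 95%. Printed CPM are the deposited counts divided by the library total times its TMM factor, with the usual scaling of CPM. A group is treated as near 0 at 3 counts or fewer, a limit that covers counting error only, and medians of lists are also given with such genes at their bound. The procedure was tested on simulated data.

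The gene lists, markers and comparisons were chosen with earlier results of these data known. Genes were named by a rule. It took Foxn1 and other fixed genes of cTEC and mTEC, up to 2 members of each list per direction with the smallest adjusted p, and the genes with the largest changes at a mean of at least 5 CPM: 8 for each direction of an opposite or 1-compartment class and 3 for each same-direction class. Other list members are named as examples, and results for some genes are not reported here. Library numbers were checked for pairing: over 13 pairs of equal number the deviations from the group means correlated by -0.0656 to 0.0748. Alternatives were RLE size factors, no factors, 2 other filters, DESeq2 1.42.0, limma-voom (limma 3.58.1), robust spread, all 20 libraries, the replicate block and each library left out. Promoters were read from a RefSeq table of GRCm38.p6.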

Additional observations from a re-analysis of the deposited data

Results flagged for a closer look

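Every value here is flagged for the same reason, a dose effect that differs between cTEC and mTEC by the test of the difference itself (edgeR's quasi-likelihood test of the interaction, adjusted over all genes). It was called higher for 4848 genes and lower for 3314 of 19222. Named genes among them follow by class, each with its log2 interaction, the mTEC effect minus the cTEC effect. Groups of 2 and 3 libraries are too small to test for single outlying libraries. Of the 140 named genes called, 35 lost the call in at least 1 other fit.

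30 of the genes listed here rose in cTEC and fell in mTEC, with log2 interactions of -8.30 for Tnfaip6, -6.92 for Gdf10, -6.71 for Krt13, -6.23 for Fgg, -5.74 for Krt19, -5.72 for Krtdap and -5.70 for Camp. Krt23 and others of these had log2 interactions of -5.70 for Krt23, -5.58 for Spink5, -4.55 for Grhl3, -4.49 for Klk1, -3.17 for Bmp2, -3.15 for H2-Ob and -3.07 for Foxa1. Ptgs1 and others of these had log2 interactions of -3.00 for Ptgs1, -2.98 for Ehf, -2.82 for Hnf4g, -2.71 for Traf1, -2.29 for Ctsz, -2.26 for Psmb8 and -2.13 for Lfng. Tnfrsf11b and others of these had log2 interactions of -2.08 for Tnfrsf11b, -1.83 for Jag1, -1.78 for Col17a1, -1.68 for Dclk1, -1.38 for Psme1, -1.37 for Ier5 and -1.12 for Fosl2. Ccnd3 had -0.88 and Ebp -0.74.

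21 of the genes listed here fell in cTEC and rose in mTEC, with log2 interactions of 0.50 for Ciita, 0.54 for Atp5a1, 0.62 for Pvrl1, 1.02 for Foxn1, 1.06 for Xrcc5, 1.13 for Wnt4 and 1.17 for Pax1. Psmd3 and others of these had log2 interactions of 1.18 for Psmd3, 1.21 for Kremen1, 1.26 for Nfkbie, 1.58 for Wipi1, 2.13 for Mfng, 2.33 for Gatsl3 and 2.59 for Tmem169. Mafa and others of these had log2 interactions of 2.76 for Mafa, 2.82 for Scrt2, 2.91 for Myo5c, 3.39 for Camkv, 3.66 for Dtx4, 3.78 for Snhg11 and 4.89 for Pcdh15.

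13 of the genes listed here were called down in cTEC only, with log2 interactions of 0.48 for Ndufa4, 0.54 for Zmat3, 0.58 for Srebf2, 1.06 for Gabarapl1, 1.18 for Psmc2, 2.57 for Arpp21 and 2.81 for Syngr1. Pds5b had 3.18, Myh11 3.38, Lcp2 3.42, Apba2 3.51, Ebf1 3.88 and Ppp1r27 5.30. All 21 thymocyte and T cell markers also fell in cTEC, and the part of such cells in these falls was not tested.

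15 of the genes listed here were called up in cTEC only, with log2 interactions of -7.36 for Elf5, -6.19 for Otog, -5.92 for Epyc, -5.44 for Igfbp5, -5.06 for Ces1b, -4.93 for Efhd1 and -4.90 for Ush1c. Krt15 and others of these had log2 interactions of -4.56 for Krt15, -3.54 for Notch3, -3.51 for Col1a2, -2.98 for Klf4, -2.58 for Krt5, -2.29 for Krt14 and -1.27 for Ccl21a. Tfeb had -0.48, not called with all 20 libraries or without lower-dose cTEC library 1.

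10 of the genes listed here were called down in mTEC only, with log2 interactions of -2.78 for Gipc2, -2.62 for Lyz2, -2.60 for Reg3g, -2.26 for Angptl7, -2.05 for Cd14, -1.93 for Metrnl and -1.88 for Tmprss2. Sirt1 had -1.56, Bcl2l1 -0.89 and Atg13 -0.46.

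16 of the genes listed here were called up in mTEC only, with log2 interactions of 0.60 for Itgb4, 0.66 for Col4a2, 0.77 for Myc, 0.87 for Top2a, 0.90 for Cdc20, 1.08 for Nr4a2 and 1.16 for Hipk2. Hsd17b7 and others of these had log2 interactions of 1.23 for Hsd17b7, 1.32 for Pcdha2, 1.40 for Mdga1, 1.40 for Ankle1, 1.51 for Rasl10b, 1.52 for Chrna9 and 1.62 for Soga1. Sytl3 and others of these had log2 interactions of 1.81 for Sytl3 and 1.85 for Vash1.

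16 of the genes listed here fell more in cTEC, with log2 interactions of 0.51 for Ly75, 0.87 for Psmb10, 1.11 for Psmb11, 1.17 for Krt8, 1.26 for Krt18, 1.32 for Cxcl12 and 1.33 for Foxj1. Cd40 and others of these had log2 interactions of 1.40 for Cd40, 1.72 for Ctsl, 1.82 for Dll4, 1.90 for Cd83, 2.95 for Prss16, 3.41 for Ccl25 and 4.03 for Samsn1. Slc22a7 and others of these had log2 interactions of 4.07 for Slc22a7 and 5.29 for Fgf14. Here too the part of thymocytes, whose markers also fell in cTEC, was not tested.

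8 of the genes listed here fell more in mTEC, with log2 interactions of -2.89 for Igfbp6, -2.25 for Soat2, -2.09 for Gpx3, -1.45 for Oasl1, -1.29 for Ifit2, -0.63 for Cxcl16 and -0.44 for Perp. H2-Aa had -0.38.

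5 of the genes listed here rose more in cTEC, with log2 interactions of -5.56 for Sox10, -5.37 for Abca8a, -4.86 for Sim1, -2.72 for Wnt5a and -1.60 for Scx.

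3 of the genes listed here rose more in mTEC, with log2 interactions of 1.56 for Megf11, 1.84 for Nkx2-2os and 2.59 for Prokr1.

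For 4 of these genes a cTEC group held 3 counts or fewer, so the fitted value depends on the prior count. Against a floor of 3 counts over the group, the cTEC rise of Tnfaip6 was at least 1.801-fold, that of Gdf10 at least 1.801-fold, and Samsn1 was at least 8.15-fold lower in lower-dose cTEC. The cTEC ratio of Elf5 was 186 with a 95% counting interval of 33.1 to 7396.

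The cTEC rise of Gdf10 was not called in 8 of the 10 fits that leave out 1 library (log2 fold changes from 4.05 to 4.09, adjusted p from 0.051 to 0.072), nor with every gene kept (adjusted p = 0.060) or with the replicate block (adjusted p = 0.059). Its interaction was not called in the fit of all 20 libraries (adjusted p = 0.17). Sox10 is a neural crest and Schwann cell factor, and that marker set, Sox10 included, summed to 216 to 251 CPM in lower-dose and 144 to 150.2 in higher-dose cTEC. The part of such cells was not tested.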

How the results depend on the processing

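The number of interactions called depends on the scaling. With RLE size factors the genes down in cTEC and up in mTEC numbered 591, those up in mTEC only 1127 and those rising more in mTEC 184. With no normalization factors the interaction was higher for 3106 genes, and the same classes held 517 and 1136, with 715 down in cTEC only. DESeq2 called 3177 interactions higher and 3430 genes higher in mTEC, with 523, 1016 and 166 genes in the 3 classes first named. With every gene with a count kept, 185 rose more in mTEC, and limma-voom called 1989 down in mTEC only. Splits of the interaction into higher and lower were 3403 and 3925 (RLE), 3106 and 4119 (no factors), 3177 and 3599 (DESeq2) and 4988 and 4209 (limma-voom). Where the scaling was changed, the shift of the median of all genes is part of its construction. The cause of the other changes was not tested.

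A fit of all 20 libraries, whose spread includes cTEC of other genotypes, called fewer genes. The interaction was higher for 2345 and lower for 1796, cTEC effects were 2427 and 2435, and mTEC effects 3248 and 3573. Opposite classes held 278 (down in cTEC) and 246 (up in cTEC). Genes down in cTEC only numbered 698, down in mTEC only 654 and up in mTEC only 1212. Same-direction classes held 23 (down, more in cTEC), 11 (up, more in cTEC), 34 (down, more in mTEC) and 31 (up, more in mTEC).

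With each library left out, interactions called higher ran from 3829 to 4848 and lower from 2889 to 3327. Genes called ran from 3366 to 4061 up and 3583 to 4293 down in cTEC, and from 4494 to 5784 and 4788 to 6156 in mTEC. Opposite classes ran from 677 to 954 (down in cTEC) and 642 to 877 (up in cTEC). Classes of 1 compartment ran from 970 to 1403 down and 788 to 1032 up in cTEC, and from 870 to 1107 and 1425 to 2038 in mTEC. Same-direction classes ran from 207 to 362 and 155 to 308 (more in cTEC, down and up), and from 123 to 174 and 220 to 490 (more in mTEC). An mTEC group then holds 1 library, which is assumed to vary like the other groups.

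None of the 13 pairs of equal number correlated over 0.1, which does not exclude shared mice. With the number as a replicate block the interaction was higher for 4781 genes and lower for 3244, with 3934 and 4163 in cTEC and 5485 and 5831 in mTEC, and 940 and 816 genes in the opposite classes.

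Of 145 named genes 140 were called. Over 2755 pairs of a gene and an alternative, 2688 kept direction and call, 60 lost the call, 7 gained it and none reversed. Of the 140, 95 kept their response class with each library left out, 112 under RLE, no factors and DESeq2, and 72 in the fit of all 20 libraries.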

Other observations

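Gene families that share a symbol stem were counted after the values had been seen, so these counts are descriptions. Of all genes, 20.9% rose and 21.9% fell in cTEC, 28.9% rose and 30.8% fell in mTEC, and the interaction was higher for 25.2% and lower for 17.2%. Among 29 Mrps genes, subunits of the small mitochondrial ribosome, 1 rose and 15 fell in cTEC, 11 rose and 1 fell in mTEC, and the interaction was higher for 17 and lower for 0. Among 55 Eif genes, translation initiation factors, 4 rose and 17 fell in cTEC, 32 rose and 2 fell in mTEC, and the interaction was higher for 29 and lower for 1. For 38 Ddx genes, DEAD-box RNA helicases, 3 rose and 3 fell in cTEC, 28 rose and 3 fell in mTEC, and the interaction was higher for 22 and lower for 2. For 50 Usp genes, mostly ubiquitin-specific proteases, 7 rose and 12 fell in cTEC, 29 rose and 8 fell in mTEC, and the interaction was higher for 29 and lower for 6. The median log2 changes of these families are small, between -0.21 (Mrps) and 0.01 (Ddx) in cTEC and between 0.15 (Mrps) and 0.29 (Ddx) in mTEC, and a scaling that moves all genes by a like amount changes such counts.

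Families of matrix and epithelial genes were counted in the same way. Among 45 Col genes, collagen chains, 25 rose and 5 fell in cTEC, 11 rose and 13 fell in mTEC, and the interaction was higher for 5 and lower for 22. Of 43 Krt genes, keratins, 14 rose and 7 fell in cTEC, 1 rose and 36 fell in mTEC, and the interaction was higher for 4 and lower for 23. For 26 Serpinb genes, intracellular protease inhibitors, 8 rose and 4 fell in cTEC, 0 rose and 26 fell in mTEC, and the interaction was higher for 0 and lower for 11, with 8 up in cTEC and down in mTEC. For 26 Klk genes, kallikreins, 2 rose and 0 fell in cTEC, 0 rose and 26 fell in mTEC, and the interaction was higher for 0 and lower for 8. A group held 3 counts or fewer for 14 of the Krt, 13 of the Serpinb and 21 of the Klk genes, mostly in cTEC, so for these families the interaction is limited by depth. Such genes pass the filter on low counts through the group where they are high, so their fall in mTEC is a description. Near-identical Klk and Serpinb copies may share counts.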
